A study of Mus musculus with 24 samples.

Results

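The genes described here are 46 mouse genes of the interferon response and of antigen presentation, taken from a list of symbols and matched to Ensembl identifiers in the count files of 24 RNA-seq libraries. The files held 39017 identifiers. Of the 46 genes, 37 had a mean of at least 5 counts over the 24 libraries, as had 14361 genes in all, and only these were tested. All libraries came from NIH 3T3, a spontaneously immortalized fibroblast line from mouse embryos. The cells were stably transduced with a retroviral vector and kept as pooled drug-selected cultures. There were 8 groups of 3 libraries: the empty vector (EV), the empty vector titled as sub-confluent (EVsub), and 6 introduced proteins. These were YAP5SA and TAZ4SA, the fusions YAP-TFE3 and TAZ-CAMTA1, and TFE3 and CAMTA1. TAZ4SA and YAP5SA are full-length forms of the transcriptional coactivators TAZ and YAP in which serines phosphorylated by the LATS kinases are replaced by alanine, so that the Hippo pathway does not restrain them. TAZ-CAMTA1 and YAP-TFE3 are the fusion proteins of epithelioid hemangioendothelioma, and CAMTA1 and TFE3 are the full-length partners of those fusions. The cells were at confluence when collected, except those of CAMTA1 and, by their titles, those of EVsub, although the growth protocol names CAMTA1 alone. CAMTA1 was therefore compared with EVsub and the other proteins with EV. All groups are the same cell line carrying a viral vector, and the labels name no interferon treatment.

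Type I interferons act through the kinases JAK1 and TYK2 on STAT transcription factors such as STAT2, which with IRF9 bind the interferon-stimulated response element (ISRE) of antiviral genes, while interferon gamma acts through JAK1 and JAK2 and on gamma-activated sites (GAS). The products of the induced genes sense foreign RNA, bind or degrade viral RNA, hold back viral particles, attach the ubiquitin-like protein ISG15 to other proteins, and disrupt the vacuoles of intracellular pathogens. The same signals raise the parts of the MHC class I pathway, in which TAP carries peptides into the endoplasmic reticulum and class I heavy chains with beta-2-microglobulin present them at the surface. Fibroblasts make and answer type I interferon, and many of these genes have a low level of expression without infection.

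The libraries held 16471181 to 30132586 counts (median 22298975). Levels are given as CPM, counts scaled to a common library size, with TMM normalization, whose factors were between 0.773 and 0.829 in YAP5SA, between 0.810 and 1.036 in TAZ4SA and between 1.002 and 1.087 in the other groups. The 7 fibroblast markers summed to between 10367 and 34491 CPM in every library. As a check of the labels, Ccn1, a target gene of TAZ and YAP, was at 42.9 to 63.7 CPM in EV, 299 to 489 in TAZ4SA, 246 to 421 in TAZ-CAMTA1, 1731 to 2460 in YAP5SA and 148 to 206 in YAP-TFE3, against 62.3 to 63.8 in TFE3. Ccn1 was also at 167 to 420 CPM in CAMTA1 and 57.6 to 223 in EVsub, the sub-confluent groups, which overlap the groups of the fusions. Mouse Camta1 was at 9.23 to 11.2 CPM in CAMTA1 and at 3.95 to 7.29 in the other groups, whereas mouse Tfe3 was at 68.1 to 74.4 CPM in TFE3 and 84.6 to 93.2 in EV, and mouse Yap1 at 91.6 to 111 CPM in YAP5SA and 170 to 193 in EV. These last counts do not show the introduced TFE3 and YAP5SA, and whether the introduced sequences map to the mouse genes was not tested. In such bulk samples, fewer cells of a type and less RNA per cell cannot be told apart.

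With the full-length proteins most of the tested genes moved, and TAZ4SA and YAP5SA moved them differently. In TAZ4SA against EV, 21 of the 37 genes rose and 9 fell by edgeR's quasi-likelihood test (adjusted p under 0.05 over all genes tested), where 31.1% of all 14361 genes rose and 26.4% fell. The median log2 fold change was 0.75 over the 37 genes and 0.05 over all genes. By role, 10 of 13 antiviral effectors, 3 of 5 antigen presentation genes, 2 of 4 transcription factors and 2 of 3 sensors rose, while 2 of 5 interferon-inducible GTPases fell. Ifi44, among the effectors that rose, passed the limit on counts only through TAZ4SA. In YAP5SA against EV, 10 genes rose and 13 fell, which is 27.0% and 35.1% of the 37 against a background of 36.3% and 34.9% of all genes, so that the genes were not called more often than all genes. The medians were -0.30 over the 37 genes and 0.01 over all genes, with 4 of 5 GTPases and 4 of 7 genes of ISG15, ubiquitin and ADP-ribose modification lower and 3 of 5 antigen presentation genes higher. Both comparisons use the same EV libraries. The number of genes lower in TAZ4SA was 5 without EV replicate 1, EV replicate 2 or TAZ4SA replicate 1. Scaled by library totals alone, which moved the median of all genes in YAP5SA against EV to -0.36 and in TAZ4SA against EV to -0.12, 7 of the 37 genes were higher and 17 lower in YAP5SA. The shares of all genes called under this scaling were not counted, so these numbers have no background.

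The fusion proteins moved fewer of these genes and fewer of all genes. The share of the 37 genes called lay near that of all genes, at 10.8% higher and 10.8% lower in TAZ-CAMTA1 and 16.2% higher and 5.4% lower in YAP-TFE3. In TAZ-CAMTA1 against EV, 4 of the 37 genes rose (Bst2, H2-K1, Ifit1 and Ifit2) and 4 fell (Gbp2, Rtp4, Xaf1 and Gbp3), with 12.5% of all genes higher and 8.98% lower. In YAP-TFE3 against EV, 6 rose (Bst2, Stat2, H2-K1, Ifit1, Trim30a and Irgm1) and 2 fell (Gbp2 and Rtp4), with 10.6% of all genes higher and 4.74% lower. The medians of the 37 genes were -0.11 and 0.09, and that of all genes was 0.00 in both. Both comparisons again share the EV libraries. The count of lower genes was small enough for single libraries to set it: it was 2 in TAZ-CAMTA1 without EV replicate 1 or 3 or TAZ-CAMTA1 replicate 2 or 3, and in YAP-TFE3 it was 0 without EV replicate 1, 4 without EV replicate 2, and 1 without EV replicate 3 or YAP-TFE3 replicate 1 or 3.

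TFE3 and CAMTA1 moved the fewest. In TFE3 against EV, Mx2 rose and Gbp2 and Xaf1 fell, with 2.36% of all genes higher and 1.02% lower, and the medians were -0.31 over the 37 genes and -0.02 over all genes. In CAMTA1 against EVsub, Irgm1 rose and Gbp2, Mx1, Parp14 and Igtp fell, with 1.29% of all genes higher and 0.891% lower, and the medians were -0.30 and -0.03. In EVsub against EV, the comparison of culture density without an introduced protein, no gene rose and 11 fell, with 12.5% of all genes higher and 9.59% lower, and the medians were -0.39 and 0.02. The count of 0 was the same by DESeq2, and 1 of the 37 genes was higher at an unadjusted p under 0.05 by edgeR and 0 by DESeq2. None of the 3 calls of TFE3 held when each library was left out in turn: none of the genes was lower without EV replicate 1 or 3 or TFE3 replicate 1, 2 or 3, and none was higher without EV replicate 2 or 3 or TFE3 replicate 2 or 3. In CAMTA1, 0 genes were lower without CAMTA1 replicate 1 or 2 and 1 without EVsub replicate 2 or 3, while 0 were higher without EVsub replicate 2 or 3 or CAMTA1 replicate 1 or 2 and 2 without EVsub replicate 1. In EVsub the number lower was 5 without EVsub replicate 1, 7 without EV replicate 3 or EVsub replicate 2, and up to 16 over the libraries left out.

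**Figure D1:**
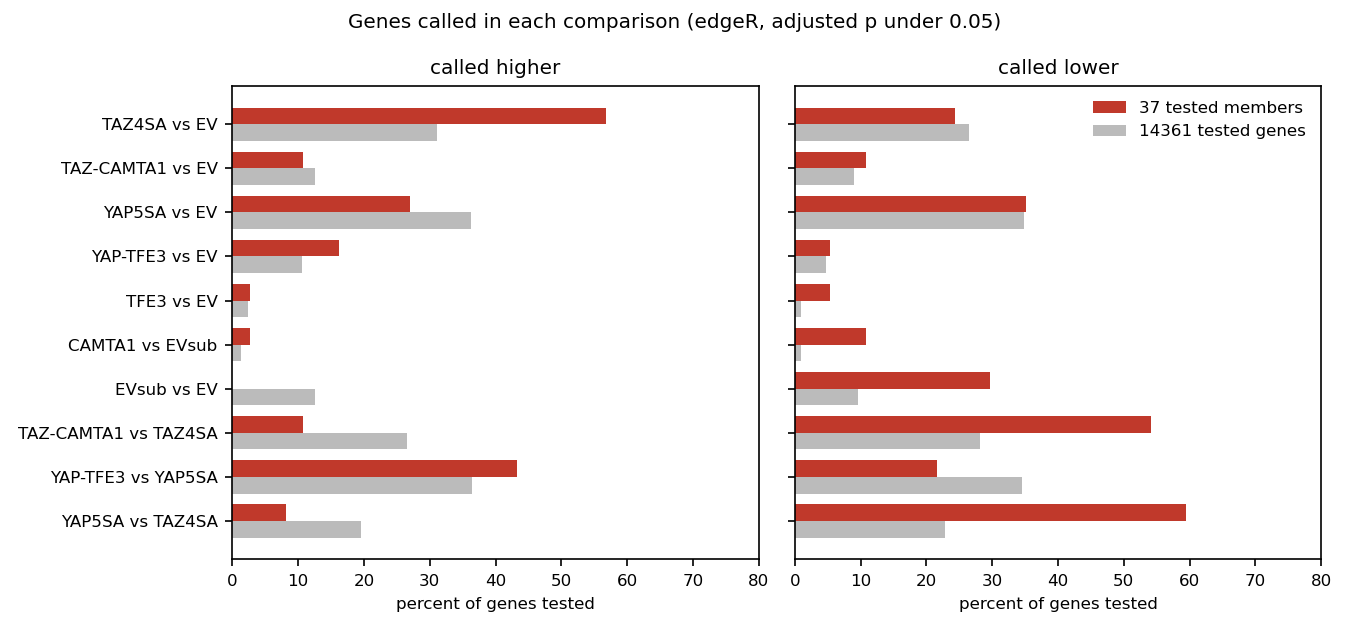
Percent of genes called higher or lower (adjusted p under 0.05) in each of the 10 comparisons, for the 37 interferon response and antigen presentation genes and for all 14361 genes tested. In TAZ4SA against EV 56.8% of the 37 genes were higher, where 31.1% of all genes were, while in YAP5SA against EV the shares of the genes and the background lie close together.

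Levels between genes were compared as CPM per kilobase of exon, averaged over the 24 libraries. B2m, the invariant light chain of MHC class I, stood first at 591, followed by the class I heavy chain H2-D1 at 104, Bst2 at 35.9, Ifi27 at 27.2, Ifit2 at 18.8 and Trim25 at 12.3, and the lowest of the tested genes were Oasl2 at 0.137, Mx1 at 0.0658 and Ifi44 at 0.0373. The group with the highest mean was TAZ4SA for 17 of the 37 genes, EV for 8, YAP5SA for 7, YAP-TFE3 for 3 and TAZ-CAMTA1 and TFE3 for 1 each. The lowest mean was in CAMTA1 for 21 genes, YAP5SA for 6, TFE3 for 4 and TAZ4SA, TAZ-CAMTA1 and EVsub for 2 each. The median log2 difference of the 37 genes from the EV mean was 0.69, 0.80 and 0.36 in the TAZ4SA libraries, -0.76, -0.68 and -0.54 in CAMTA1, -0.64, -0.49 and -0.19 in EVsub, and -0.29, -0.06 and -0.28 in YAP5SA. It was -0.28, -0.33 and -0.29 in TFE3, -0.11, -0.24 and -0.02 in TAZ-CAMTA1 and 0.15, 0.02 and 0.08 in YAP-TFE3. The TAZ4SA libraries thus lay above the EV mean in the middle of the list. Both sub-confluent groups lay below it, and so did the confluent groups TFE3, YAP5SA and, by less, TAZ-CAMTA1.

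**Figure D2:**
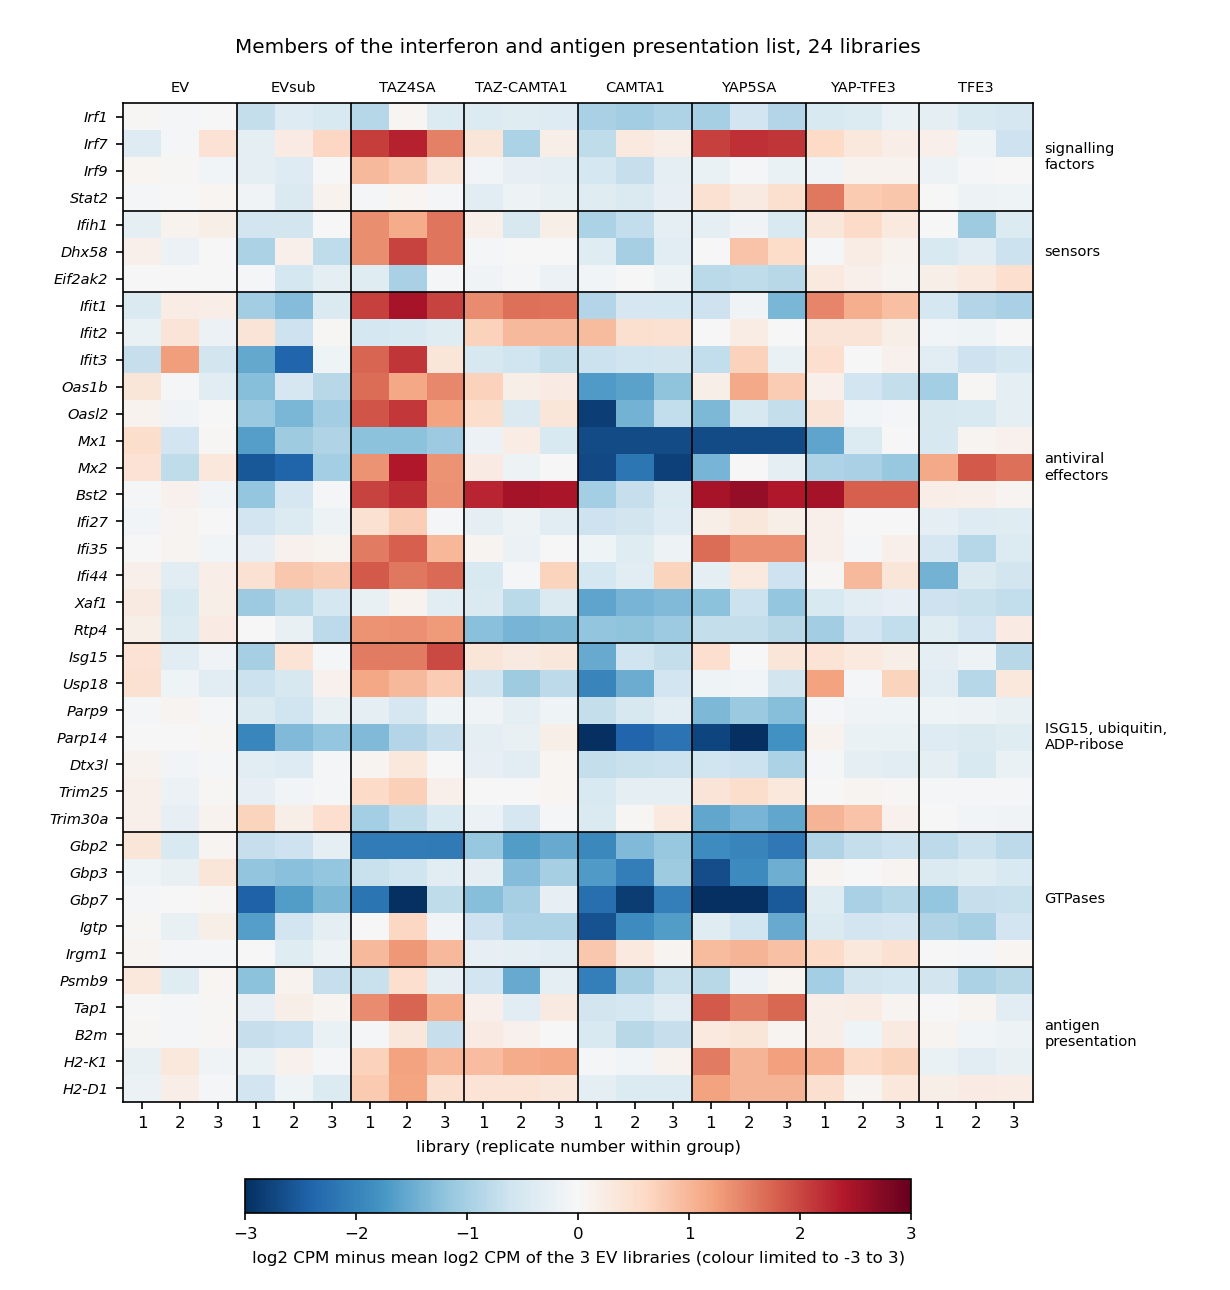
Log2 CPM minus the EV mean for the 37 tested genes (rows, grouped by role) in each of the 24 libraries (columns, by group), on a colour scale from -3 to 3. The TAZ4SA columns are high for most antiviral effectors, the YAP5SA columns are low for the GTPases except Irgm1 and high for Tap1, H2-K1 and H2-D1, and Bst2 is high in the columns of all 4 TAZ and YAP proteins.

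Among the transcription factors, Irf7, the factor that amplifies type I interferon production, rose with both full-length proteins and did not pass the test with either fusion protein. Irf7 was at 0.591, 0.764 and 1.11 CPM in EV, 0.638, 0.962 and 1.27 in EVsub, 0.433, 0.999 and 0.928 in CAMTA1 and 0.894, 0.717 and 0.488 in TFE3. Irf7 levels were 3.62, 4.27 and 2.42 CPM in TAZ4SA, 1.05, 0.373 and 0.918 in TAZ-CAMTA1, 3.54, 3.97 and 3.80 in YAP5SA and 1.25, 1.00 and 0.934 in YAP-TFE3. The TAZ4SA and YAP5SA libraries lay above all other libraries. The change against EV was 2.05 ± 0.35 (SE) on the log2 scale in TAZ4SA (edgeR adjusted p = 3.48e-05) and 2.20 ± 0.34 (SE) in YAP5SA (edgeR adjusted p = 6.90e-06), and in the fusions it was -0.05 ± 0.38 (SE) (edgeR adjusted p = 0.945) and 0.37 ± 0.37 (SE) (edgeR adjusted p = 0.583). Irf7 shares exonic sequence with Phrf1 on the opposite strand, and the strand setting of the counting is not given in the sources used here. Irf9, the DNA-binding partner of STAT2, was at 8.91, 8.69 and 8.01 CPM in EV, 6.97, 6.48 and 8.41 in EVsub, 5.91, 5.28 and 6.90 in CAMTA1 and 7.69, 8.19 and 8.54 in TFE3. Irf9 levels were 16.9, 14.9 and 11.3 CPM in TAZ4SA, 8.09, 7.22 and 6.95 in TAZ-CAMTA1, 7.44, 8.19 and 7.48 in YAP5SA and 7.97, 9.21 and 9.17 in YAP-TFE3. All 3 TAZ4SA libraries lay above every other library, with log2 fold change 0.75 ± 0.15 (SE), edgeR adjusted p = 1.90e-04 against EV. Part of the exonic sequence of Irf9 is shared with Rnf31 on the same strand.

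Stat2 behaved otherwise: it rose in YAP-TFE3. Its level was 35.4, 36.6 and 38.1 CPM in EV, 34.3, 27.1 and 39.2 in EVsub, 28.5, 27.1 and 31.0 in CAMTA1 and 36.8, 33.0 and 33.8 in TFE3. Stat2 levels were 35.1, 38.5 and 35.4 CPM in TAZ4SA, 29.5, 33.0 and 31.3 in TAZ-CAMTA1, 50.0, 44.0 and 50.9 in YAP5SA and 109, 63.7 and 65.8 in YAP-TFE3. The 3 YAP-TFE3 libraries were the highest of the 24, with replicate 1 well above the other two, and the YAP5SA libraries came next. The YAP-TFE3 value against EV was log2 fold change 1.12 ± 0.16 (SE), edgeR adjusted p = 2.32e-05, and 0.79 without YAP-TFE3 replicate 1. In YAP5SA it was log2 fold change 0.40 ± 0.16 (SE), edgeR adjusted p = 0.0271, a call that was lost without EV replicate 1 or 2 or YAP5SA replicate 1 or 3 (adjusted p between 0.0559 and 0.0781). The YAP5SA call was also lost with library totals alone and with at least 10 counts in every library. Over all alternatives its log2 fold change went down to 0.03 and its edgeR adjusted p up to 0.894. Irf1, which drives antigen presentation and GTPase genes downstream of interferon gamma, was at 56.1, 53.3 and 54.6 CPM in EV, 33.2, 41.6 and 39.5 in EVsub, 27.6, 26.7 and 28.9 in CAMTA1 and 44.7, 39.5 and 38.2 in TFE3. Irf1 levels were 30.2, 56.7 and 40.9 CPM in TAZ4SA, 41.4, 42.3 and 42.1 in TAZ-CAMTA1, 27.2, 36.5 and 29.8 in YAP5SA and 39.7, 41.1 and 47.9 in YAP-TFE3. The CAMTA1 and YAP5SA libraries were the lowest groups and the TAZ4SA libraries spread from 30.2 CPM into the EV range. Irf1 fell in YAP5SA (log2 fold change -0.81 ± 0.16 (SE), edgeR adjusted p = 8.49e-05) and in EVsub (log2 fold change -0.52 ± 0.15 (SE), edgeR adjusted p = 0.0188). The EVsub call was lost without EV replicate 1 or 3 or EVsub replicate 1 (adjusted p between 0.0524 and 0.0963). The TAZ4SA value was -0.36 ± 0.16 (SE) with edgeR adjusted p = 0.0492, a call that was lost without EV replicate 1 or 2 or 3 or TAZ4SA replicate 1 or 3 (adjusted p between 0.0708 and 0.331).

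Of the sensors of foreign RNA, Ifih1 (MDA5, which binds long double-stranded RNA) and Dhx58 (LGP2, its regulator) rose in TAZ4SA and did not pass the test in YAP5SA. Ifih1 was at 1.10, 1.43 and 1.5 CPM in EV, 0.865, 0.890 and 1.31 in EVsub, 0.649, 0.761 and 1.08 in CAMTA1 and 1.34, 0.591 and 0.976 in TFE3. Ifih1 levels were 3.67, 3.00 and 4.27 CPM in TAZ4SA, 1.5, 0.932 and 1.52 in TAZ-CAMTA1, 1.08, 1.23 and 0.950 in YAP5SA and 1.71, 2.04 and 1.66 in YAP-TFE3. The TAZ4SA libraries lay above all others, and the YAP5SA range overlapped that of EV. Against EV the values were log2 fold change 1.45 ± 0.27 (SE), edgeR adjusted p = 9.14e-05 in TAZ4SA and log2 fold change -0.30 ± 0.30 (SE), edgeR adjusted p = 0.373 in YAP5SA. Dhx58 was at 1.27, 1.00 and 1.15 CPM in EV, 0.547, 1.28 and 0.634 in EVsub, 0.865, 0.524 and 0.897 in CAMTA1 and 0.805, 0.886 and 0.697 in TFE3. Dhx58 levels were 3.13, 4.87 and 3.61 CPM in TAZ4SA, 1.09, 1.12 and 1.12 in TAZ-CAMTA1, 1.13, 2.11 and 1.71 in YAP5SA and 1.10, 1.34 and 1.23 in YAP-TFE3. TAZ4SA again had the 3 highest libraries, with log2 fold change 1.74 ± 0.28 (SE), edgeR adjusted p = 1.81e-05 in TAZ4SA and log2 fold change 0.53 ± 0.29 (SE), edgeR adjusted p = 0.112 in YAP5SA. Dhx58 overlaps an antisense transcript, Dhx58os. Eif2ak2 (PKR, a kinase that halts translation on double-stranded RNA) was at 47.3, 47.5 and 46.5 CPM in EV, 45.4, 32.4 and 38.3 in EVsub, 44.8, 46.5 and 42.5 in CAMTA1 and 53.6, 58.0 and 66.4 in TFE3. Eif2ak2 levels were 36.3, 24.1 and 45.9 CPM in TAZ4SA, 44.0, 45.5 and 41.8 in TAZ-CAMTA1, 26.8, 27.8 and 26.5 in YAP5SA and 58.1, 52.5 and 49.8 in YAP-TFE3. The YAP5SA libraries lay below all EV libraries, at log2 fold change -0.80 ± 0.15 (SE), edgeR adjusted p = 8.73e-05, while the smaller value in TAZ4SA, -0.40 ± 0.15 (SE) with edgeR adjusted p = 0.0286, was lost without EV replicate 1 or 2 or 3 or TAZ4SA replicate 1 or 2 (adjusted p between 0.0528 and 0.197). Zbp1, the last sensor of the list, had at most 9 counts in a library and was not tested.

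Bst2 (tetherin, which ties budding virions to the cell membrane) rose with all 4 TAZ and YAP proteins and had the highest level per kilobase among the effectors. Its level was 11.2, 12.5 and 10.9 CPM in EV, 5.10, 8.05 and 11 in EVsub, 5.63, 7.14 and 8.69 in CAMTA1 and 13.2, 12.9 and 12.2 in TFE3. Bst2 levels were 47.3, 53.7 and 29.9 CPM in TAZ4SA, 56.4, 65.5 and 63.6 in TAZ-CAMTA1, 64.0, 72.5 and 61.2 in YAP5SA and 65.9, 40.0 and 40.3 in YAP-TFE3. All 12 libraries of TAZ4SA, TAZ-CAMTA1, YAP5SA and YAP-TFE3 lay above all 12 of the other groups. The log2 fold change against EV was 1.92 ± 0.24 (SE) in TAZ4SA (edgeR adjusted p = 5.92e-07), 2.42 ± 0.24 (SE) in TAZ-CAMTA1 (edgeR adjusted p = 1.56e-07), 2.51 ± 0.24 (SE) in YAP5SA (edgeR adjusted p = 5.13e-09) and 2.08 ± 0.24 (SE) in YAP-TFE3 (edgeR adjusted p = 1.89e-06). In TFE3 it was log2 fold change 0.14 ± 0.23 (SE), edgeR adjusted p = 0.867. All 4 calls held under every alternative that was run. Ifit1, which binds RNA lacking the cap methylation of host transcripts, also rose in 3 of the 4. It was at 1.31, 2.10 and 2.08 CPM in EV, 0.820, 0.677 and 1.31 in EVsub, 0.938, 1.24 and 1.21 in CAMTA1 and 1.21, 0.928 and 0.872 in TFE3. Ifit1 levels were 7.69, 10.3 and 7.61 CPM in TAZ4SA, 4.93, 5.78 and 5.75 in TAZ-CAMTA1, 1.13, 1.67 and 0.634 in YAP5SA and 5.06, 3.92 and 3.40 in YAP-TFE3. The TAZ4SA, TAZ-CAMTA1 and YAP-TFE3 libraries were higher than all others, whereas the YAP5SA libraries fell within or below the EV range. The values against EV were log2 fold change 2.21 ± 0.26 (SE), edgeR adjusted p = 3.90e-07 in TAZ4SA, log2 fold change 1.59 ± 0.26 (SE), edgeR adjusted p = 1.27e-04 in TAZ-CAMTA1, log2 fold change 1.17 ± 0.26 (SE), edgeR adjusted p = 0.00338 in YAP-TFE3 and log2 fold change -0.64 ± 0.30 (SE), edgeR adjusted p = 0.0603 in YAP5SA.

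Further effectors rose in TAZ4SA, and Ifi35 among them rose also in YAP5SA. Oasl2, of the family of oligoadenylate synthetases that sense double-stranded RNA, was at 0.844, 0.716 and 0.796 CPM in EV, 0.319, 0.249 and 0.338 in EVsub, 0.0361, 0.238 and 0.433 in CAMTA1 and 0.536, 0.549 and 0.628 in TFE3. Oasl2 levels were 3.13, 3.67 and 1.93 CPM in TAZ4SA, 1.17, 0.559 and 1.04 in TAZ-CAMTA1, 0.257, 0.540 and 0.443 in YAP5SA and 1.05, 0.737 and 0.764 in YAP-TFE3. The 3 TAZ4SA libraries were the highest, at log2 fold change 1.86 ± 0.36 (SE), edgeR adjusted p = 1.66e-04 against EV, and the YAP5SA value was log2 fold change -0.92 ± 0.45 (SE), edgeR adjusted p = 0.0718. Rtp4, an interferon-induced gene with antiviral activity, was at 1.98, 1.29 and 2.08 CPM in EV, 1.73, 1.5 and 0.972 in EVsub, 0.721, 0.714 and 0.773 in CAMTA1 and 1.34, 1.14 and 2.09 in TFE3. Rtp4 levels were 4.61, 4.65 and 4.35 CPM in TAZ4SA, 0.688, 0.606 and 0.639 in TAZ-CAMTA1, 1.03, 1.03 and 0.950 in YAP5SA and 0.802, 1.14 and 1.02 in YAP-TFE3. TAZ4SA lay above and TAZ-CAMTA1, YAP5SA and YAP-TFE3 below all EV libraries. Rtp4 rose in TAZ4SA (log2 fold change 1.34 ± 0.23 (SE), edgeR adjusted p = 4.76e-05) and fell in TAZ-CAMTA1 (log2 fold change -1.46 ± 0.27 (SE), edgeR adjusted p = 3.87e-04), YAP5SA (log2 fold change -0.83 ± 0.26 (SE), edgeR adjusted p = 0.00762) and YAP-TFE3 (log2 fold change -0.84 ± 0.25 (SE), edgeR adjusted p = 0.0264). The YAP-TFE3 call was lost without EV replicate 1 or 3 or YAP-TFE3 replicate 1 or 3 (adjusted p between 0.0526 and 0.129). Rtp4 shares exonic sequence with Gm45338 on its own strand. Ifi35, a partner of NMI among interferon-induced proteins, was at 10.2, 10.9 and 9.69 CPM in EV, 8.70, 11.3 and 10.8 in EVsub, 9.30, 8.0 and 9.18 in CAMTA1 and 7.24, 5.61 and 7.64 in TFE3. Ifi35 levels were 30.2, 35.6 and 20.7 CPM in TAZ4SA, 10.9, 9.13 and 10.2 in TAZ-CAMTA1, 33.1, 26.8 and 26.8 in YAP5SA and 11.4, 9.95 and 11.4 in YAP-TFE3. The TAZ4SA and YAP5SA libraries lay above all others, at log2 fold change 1.48 ± 0.17 (SE), edgeR adjusted p = 1.90e-07 and log2 fold change 1.49 ± 0.17 (SE), edgeR adjusted p = 6.33e-08 against EV.

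The Mx proteins, dynamin-like GTPases that block viral nucleocapsids, went in different directions. Mx2 was at 1.31, 0.525 and 1.19 CPM in EV, 0.0911, 0.107 and 0.423 in EVsub, 0.0721, 0.143 and 0.0618 in CAMTA1 and 2.19, 3.59 and 3.14 in TFE3. Mx2 levels were 2.53, 5.40 and 2.55 CPM in TAZ4SA, 1.13, 0.838 and 0.958 in TAZ-CAMTA1, 0.308, 0.932 and 0.760 in YAP5SA and 0.451, 0.435 and 0.382 in YAP-TFE3. TFE3 and TAZ4SA libraries were the highest, and CAMTA1 and EVsub had the lowest means. Mx2 rose in TAZ4SA (log2 fold change 1.75 ± 0.39 (SE), edgeR adjusted p = 6.09e-04) and TFE3 (log2 fold change 1.54 ± 0.38 (SE), edgeR adjusted p = 0.0265) and fell in EVsub (log2 fold change -2.28 ± 0.52 (SE), edgeR adjusted p = 0.00313, and -3.28 without EVsub replicate 3). The TFE3 call was lost without EV replicate 2 or 3 or TFE3 replicate 2 or 3 (adjusted p between 0.0690 and 0.130). Mx1 was at 0.718, 0.286 and 0.487 CPM in EV, 0.0911, 0.178 and 0.211 in EVsub, 0 in every CAMTA1 library and 0.313, 0.506 and 0.523 in TFE3. Mx1 levels were 0.149, 0.150 and 0.176 CPM in TAZ4SA, 0.404, 0.559 and 0.319 in TAZ-CAMTA1, 0 in every YAP5SA library and 0.10, 0.335 and 0.467 in YAP-TFE3. It had no count in any YAP5SA or CAMTA1 library. Against a floor of 3 counts per library Mx1 was at least 3.03-fold lower in YAP5SA than in EV (edgeR adjusted p = 2.06e-05) and at least 1.40-fold lower in CAMTA1 than in EVsub (edgeR adjusted p = 0.0266). The CAMTA1 call was lost without EVsub replicate 2 or 3 or CAMTA1 replicate 1 or 2 or 3 (adjusted p between 0.0673 and 0.118). In TAZ4SA the log2 fold change of Mx1 was -1.62 ± 0.53 (SE) with edgeR adjusted p = 0.0145, and that call was lost without EV replicate 1 (adjusted p = 0.0832). Reads of Mx1 and Mx2, as of the Ifit, Oas and Gbp families, may be split between similar copies.

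Ifit2 was abundant in every group, at 54.8, 81.5 and 55.0 CPM in EV, 81.9, 40.7 and 63.7 in EVsub, 121, 88.0 and 85.3 in CAMTA1 and 59.3, 57.6 and 63.3 in TFE3. Ifit2 levels were 43.3, 45.6 and 48.3 CPM in TAZ4SA, 102, 123 and 122 in TAZ-CAMTA1, 61.8, 72.5 and 62.0 in YAP5SA and 82.2, 81.9 and 70.2 in YAP-TFE3. The TAZ-CAMTA1 libraries lay above all EV libraries and the TAZ4SA libraries below them. Ifit2 rose in TAZ-CAMTA1 (log2 fold change 0.86 ± 0.19 (SE), edgeR adjusted p = 0.00203), and in TAZ4SA it had log2 fold change -0.48 ± 0.19 (SE), edgeR adjusted p = 0.0359, a call that was lost without EV replicate 2 or TAZ4SA replicate 1 or 2 (adjusted p between 0.0714 and 0.265). Xaf1, an antagonist of the apoptosis inhibitor XIAP, was at 14.5, 8.83 and 13.7 CPM in EV, 5.65, 6.80 and 8.28 in EVsub, 3.97, 4.52 and 4.79 in CAMTA1 and 7.78, 7.60 and 7.18 in TFE3. Xaf1 levels were 10.3, 13.0 and 9.59 CPM in TAZ4SA, 8.86, 6.85 and 8.98 in TAZ-CAMTA1, 5.08, 7.65 and 5.32 in YAP5SA and 8.78, 9.64 and 10.1 in YAP-TFE3. The EV and TAZ4SA groups were the highest and CAMTA1 the lowest. Xaf1 fell in YAP5SA (log2 fold change -1.03 ± 0.20 (SE), edgeR adjusted p = 7.20e-05) and EVsub (log2 fold change -0.84 ± 0.19 (SE), edgeR adjusted p = 0.00339). The smaller values in TAZ-CAMTA1 (log2 fold change -0.58 ± 0.19 (SE), edgeR adjusted p = 0.0311) and TFE3 (log2 fold change -0.72 ± 0.19 (SE), edgeR adjusted p = 0.0387) rested on single libraries: the first call was lost without EV replicate 1 or 3 or TAZ-CAMTA1 replicate 2 or 3 (adjusted p between 0.0527 and 0.170), and the second was lost without EV replicate 1 or 3 or TFE3 replicate 1 or 2 or 3 (adjusted p between 0.0980 and 0.196). Ifit3 differed among the EV libraries themselves, at 36.1 CPM in replicate 2 against 9.29 and 10.2 in replicates 1 and 3, and its call in TAZ4SA (log2 fold change 1.30 ± 0.49 (SE), edgeR adjusted p = 0.0286) was lost without EV replicate 1 or 3 or TAZ4SA replicate 1 or 2 (adjusted p between 0.0724 and 0.145). Without EV replicate 2 its log2 fold change was 2.22. The remaining tested effectors Oas1b, Ifi27 and Ifi44 rose in TAZ4SA by 1.5 ± 0.32 (SE), 0.42 ± 0.14 (SE) and 2.14 ± 0.51 (SE) on the log2 scale. Ifi44 had 15, 8 and 15 counts in TAZ4SA and 4, 2 and 4 in EV. Its mean over all libraries was 5.17 counts, and it passed the limit of 5 only through TAZ4SA. Its call there is thus not independent of the limit. The Ifi27 call was lost without EV replicate 1 or TAZ4SA replicate 2 (adjusted p between 0.0568 and 0.156). Oas1b was also called higher in YAP5SA against EV, a call that was lost under 10 of 12 alternatives, DESeq2, RLE size factors and the replicate block among them.

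Isg15, the ubiquitin-like modifier, and Usp18, the protease that removes it and dampens receptor signalling, rose in TAZ4SA. Isg15 was at 2.70, 1.58 and 1.86 CPM in EV, 0.957, 2.67 and 1.90 in EVsub, 0.649, 1.28 and 1.17 in CAMTA1 and 1.65, 1.77 and 1.08 in TFE3. Isg15 levels were 6.05, 6.07 and 8.09 CPM in TAZ4SA, 2.59, 2.42 and 2.55 in TAZ-CAMTA1, 2.87, 2.01 and 2.60 in YAP5SA and 2.66, 2.44 and 2.25 in YAP-TFE3. TAZ4SA held the 3 highest libraries and CAMTA1 libraries were among the lowest, with log2 fold change 1.72 ± 0.29 (SE), edgeR adjusted p = 2.90e-05 in TAZ4SA and log2 fold change 0.28 ± 0.30 (SE), edgeR adjusted p = 0.415 in YAP5SA. Usp18 was at 0.971, 0.621 and 0.531 CPM in EV, 0.410, 0.463 and 0.761 in EVsub, 0.108, 0.190 and 0.433 in CAMTA1 and 0.536, 0.338 and 0.872 in TFE3. Usp18 levels were 1.64, 1.42 and 1.23 CPM in TAZ4SA, 0.445, 0.279 and 0.359 in TAZ-CAMTA1, 0.616, 0.638 and 0.443 in YAP5SA and 1.71, 0.670 and 1.15 in YAP-TFE3. The TAZ4SA libraries were above all EV libraries, at log2 fold change 1.00 ± 0.40 (SE), edgeR adjusted p = 0.0345, a call that was lost without EV replicate 2 or 3 or TAZ4SA replicate 1 or 2 (adjusted p between 0.0577 and 0.124) and that DESeq2 did not make. Trim25, a ubiquitin ligase that activates RIG-I, was at 74.1, 58.7 and 68.3 CPM in EV, 56.6, 62.8 and 64.8 in EVsub, 48.8, 54.3 and 54.8 in CAMTA1 and 64.3, 65.6 and 64.6 in TFE3. Trim25 levels were 100, 110 and 73.6 CPM in TAZ4SA, 67.7, 67.2 and 70.0 in TAZ-CAMTA1, 86.6, 95.7 and 83.4 in YAP5SA and 67.7, 70.4 and 68.4 in YAP-TFE3. Its TAZ4SA and YAP5SA levels were higher than in EV except in TAZ4SA replicate 3, which lay within the EV range, with log2 fold change 0.50 ± 0.11 (SE), edgeR adjusted p = 8.45e-04 and log2 fold change 0.40 ± 0.11 (SE), edgeR adjusted p = 0.00358. The YAP5SA call was lost with library totals alone and the TAZ4SA call with only the 2 groups compared (adjusted p = 0.818 and 0.0684).

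Parp14, an ADP-ribosyltransferase of the interferon response, was low in 4 groups. It was at 12.2, 12.1 and 12.5 CPM in EV, 3.10, 4.84 and 5.45 in EVsub, 1.33, 2.28 and 2.60 in CAMTA1 and 9.39, 9.12 and 9.48 in TFE3. Parp14 levels were 4.86, 6.67 and 7.52 CPM in TAZ4SA, 10.2, 10.5 and 13.9 in TAZ-CAMTA1, 1.75, 1.42 and 3.42 in YAP5SA and 13.2, 10.6 and 10.7 in YAP-TFE3. EV, TAZ-CAMTA1 and YAP-TFE3 libraries were high, TFE3 libraries a little lower, and those of YAP5SA, CAMTA1, EVsub and TAZ4SA low. Parp14 fell in TAZ4SA (log2 fold change -0.95 ± 0.25 (SE), edgeR adjusted p = 0.00235), in YAP5SA (log2 fold change -2.51 ± 0.27 (SE), edgeR adjusted p = 4.36e-08) and in EVsub (log2 fold change -1.46 ± 0.25 (SE), edgeR adjusted p = 2.76e-04). In CAMTA1 against EVsub it was lower still (log2 fold change -1.11 ± 0.27 (SE), edgeR adjusted p = 0.0307), a call that was lost without EVsub replicate 2 or 3 or CAMTA1 replicate 1 or 2 (adjusted p between 0.0869 and 0.187). Parp9, which with its partner ligase Dtx3l marks histones and viral proteins, was at 21, 23.1 and 21.1 CPM in EV, 16.2, 14.4 and 18.6 in EVsub, 13.1, 15.5 and 17.0 in CAMTA1 and 19.8, 19.4 and 18.7 in TFE3. Parp9 levels were 17.7, 15.3 and 19.8 CPM in TAZ4SA, 20.1, 18.1 and 20.0 in TAZ-CAMTA1, 8.42, 9.96 and 8.93 in YAP5SA and 21.2, 20.2 and 20.0 in YAP-TFE3. The YAP5SA libraries lay below all others, at log2 fold change -1.25 ± 0.13 (SE), edgeR adjusted p = 1.21e-08, and the values in TAZ4SA and EVsub were -0.30 ± 0.12 (SE) (edgeR adjusted p = 0.0392) and -0.41 ± 0.12 (SE) (edgeR adjusted p = 0.0191). The first of these calls was lost without EV replicate 1 or 2 or 3 or TAZ4SA replicate 1 or 2 (adjusted p between 0.0541 and 0.165), and the second was lost without EV replicate 2 or EVsub replicate 1 or 2 (adjusted p between 0.060 and 0.107). Parp9 and Dtx3l overlap on opposite strands, and Dtx3l also fell in YAP5SA (log2 fold change -0.72 ± 0.14 (SE), edgeR adjusted p = 1.07e-04). Trim30a, a regulator of innate signalling of the TRIM family, was at 12.9, 9.88 and 12.5 CPM in EV, 18.5, 13.1 and 16.6 in EVsub, 8.58, 11.9 and 14.4 in CAMTA1 and 11.5, 11 and 10.9 in TFE3. Trim30a levels were 5.75, 6.90 and 8.49 CPM in TAZ4SA, 10.4, 8.15 and 11.1 in TAZ-CAMTA1, 3.90, 4.42 and 3.93 in YAP5SA and 23.8, 21.1 and 12.9 in YAP-TFE3. It was highest in YAP-TFE3 replicates 1 and 2 and lowest in YAP5SA. Trim30a fell in TAZ4SA (log2 fold change -0.74 ± 0.22 (SE), edgeR adjusted p = 0.00625) and YAP5SA (log2 fold change -1.52 ± 0.23 (SE), edgeR adjusted p = 3.53e-06), and in YAP-TFE3 it had log2 fold change 0.71 ± 0.21 (SE), edgeR adjusted p = 0.0222, a call that was lost without EV replicate 2 or 3 or YAP-TFE3 replicate 1 or 2 (adjusted p between 0.0525 and 0.218).

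The interferon-inducible GTPases coat and break the vacuoles of intracellular pathogens, and 5 of them were tested. Of these, 4 were called lower in YAP5SA, 3 in EVsub, 2 in each of TAZ4SA, TAZ-CAMTA1 and CAMTA1, and 1 in each of YAP-TFE3 and TFE3. Gbp2 was at 31.7, 18.0 and 26.0 CPM in EV, 15.3, 16.1 and 20.1 in EVsub, 6.35, 9.71 and 11.1 in CAMTA1 and 14.1, 15.7 and 14.2 in TFE3. Gbp2 levels were 5.66, 5.70 and 5.54 CPM in TAZ4SA, 11.2, 7.64 and 8.58 in TAZ-CAMTA1, 6.57, 6.18 and 5.45 in YAP5SA and 13.0, 15 and 15.8 in YAP-TFE3. Every library of the other 7 groups except EVsub replicate 3 lay below the lowest EV library, and TAZ4SA and YAP5SA had the lowest means. Gbp2 was called lower in all 7 comparisons with an empty vector control or between the 2 controls, 6 of which use EV: log2 fold change -2.17 ± 0.21 (SE), edgeR adjusted p = 1.95e-08 in TAZ4SA, log2 fold change -1.46 ± 0.20 (SE), edgeR adjusted p = 1.08e-05 in TAZ-CAMTA1, log2 fold change -2.05 ± 0.21 (SE), edgeR adjusted p = 1.17e-08 in YAP5SA and log2 fold change -0.79 ± 0.19 (SE), edgeR adjusted p = 0.00610 in YAP-TFE3. The calls in TAZ4SA, TAZ-CAMTA1 and YAP5SA held under every alternative run, and the others were smaller changes. In TFE3 the values were log2 fold change -0.79 ± 0.19 (SE), edgeR adjusted p = 0.0244, in CAMTA1 against EVsub log2 fold change -0.92 ± 0.20 (SE), edgeR adjusted p = 0.0147 and in EVsub log2 fold change -0.56 ± 0.19 (SE), edgeR adjusted p = 0.0395. The YAP-TFE3 call was lost without EV replicate 1 (adjusted p = 0.0638), the TFE3 call was lost without EV replicate 1 or 3 or TFE3 replicate 1 or 2 or 3 (adjusted p between 0.0713 and 0.162), the CAMTA1 call was lost without EVsub replicate 3 or CAMTA1 replicate 1 or 2 (adjusted p between 0.0508 and 0.0975) and the EVsub call was lost without EV replicate 1 or 3 or EVsub replicate 1 or 2 (adjusted p between 0.107 and 0.247).

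Gbp7 was at 2.53, 2.58 and 2.65 CPM in EV, 0.410, 0.748 and 0.972 in EVsub, 0.469, 0.286 and 0.557 in CAMTA1 and 1.12, 1.56 and 1.60 in TFE3. Gbp7 levels were 0.496, 0.225 and 1.5 CPM in TAZ4SA, 1.01, 1.26 and 2.16 in TAZ-CAMTA1, 0, 0.0981 and 0.380 in YAP5SA and 2.01, 1.27 and 1.40 in YAP-TFE3. EV libraries were above all others and YAP5SA, with 1 library at 0, had the lowest mean. Gbp7 fell in TAZ4SA (log2 fold change -1.70 ± 0.47 (SE), edgeR adjusted p = 0.00363), YAP5SA (log2 fold change -4.10 ± 0.62 (SE), edgeR adjusted p = 4.02e-06) and EVsub (log2 fold change -1.85 ± 0.46 (SE), edgeR adjusted p = 0.00586). Its size rested on single libraries. It was -2.74 in TAZ4SA without TAZ4SA replicate 3. In YAP5SA, where Gbp7 had 0, 2 and 6 counts, it was -3.50 without replicate 1 and -5.55 without replicate 3. Gbp3 fell in YAP5SA (log2 fold change -2.16 ± 0.34 (SE), edgeR adjusted p = 6.57e-06) and EVsub (log2 fold change -1.30 ± 0.30 (SE), edgeR adjusted p = 0.00322), and in TAZ-CAMTA1 it had log2 fold change -0.86 ± 0.29 (SE), edgeR adjusted p = 0.0365, a call that was lost without EV replicate 1 or 3 or TAZ-CAMTA1 replicate 2 or 3 (adjusted p between 0.0588 and 0.197). Igtp, an immunity-related GTPase that shares exonic sequence with Irgm2, was at 3.88, 3.20 and 4.29 CPM in EV, 1.14, 2.49 and 3.09 in EVsub, 0.541, 0.952 and 1.11 in CAMTA1 and 1.97, 1.86 and 2.51 in TFE3. Igtp levels were 3.82, 5.85 and 3.56 CPM in TAZ4SA, 2.43, 1.96 and 1.96 in TAZ-CAMTA1, 2.93, 2.45 and 1.27 in YAP5SA and 2.76, 2.51 and 2.63 in YAP-TFE3. The CAMTA1 libraries were the lowest of all. Igtp fell in YAP5SA (log2 fold change -0.76 ± 0.31 (SE), edgeR adjusted p = 0.0338) and in CAMTA1 against EVsub (log2 fold change -1.36 ± 0.34 (SE), edgeR adjusted p = 0.0342). The first call was lost without EV replicate 1 or 3 or YAP5SA replicate 3 (adjusted p between 0.0677 and 0.173) and the second was lost without EVsub replicate 2 or 3 or CAMTA1 replicate 1 or 2 (adjusted p between 0.10 and 0.194).

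Irgm1, a regulator of the same GTPases and of autophagy, was the one of these 5 GTPases that rose against a control. It was at 28.5, 26.3 and 25.5 CPM in EV, 26.4, 20.8 and 24.1 in EVsub, 47.0, 32.9 and 28.1 in CAMTA1 and 26.7, 25.7 and 27.9 in TFE3. Irgm1 levels were 53.0, 65.7 and 53.0 CPM in TAZ4SA, 22.4, 22.2 and 21.1 in TAZ-CAMTA1, 51.4, 54.6 and 49.2 in YAP5SA and 39.9, 33.2 and 36.8 in YAP-TFE3. TAZ4SA and YAP5SA libraries were above all EV libraries, and so were those of YAP-TFE3 and 2 of the 3 in CAMTA1. Irgm1 rose in TAZ4SA (log2 fold change 1.09 ± 0.14 (SE), edgeR adjusted p = 1.31e-06) and YAP5SA (log2 fold change 0.95 ± 0.14 (SE), edgeR adjusted p = 3.76e-06). In YAP-TFE3 it had log2 fold change 0.45 ± 0.14 (SE), edgeR adjusted p = 0.0327, a call that was lost without EV replicate 1 or 2 or 3 or YAP-TFE3 replicate 1 or 3 (adjusted p between 0.0540 and 0.206). In CAMTA1 against EVsub it had log2 fold change 0.60 ± 0.14 (SE), edgeR adjusted p = 0.0259, and that call was lost without EVsub replicate 2 or 3 or CAMTA1 replicate 1 or 2 (adjusted p between 0.0577 and 0.224).

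**Figure D3:**
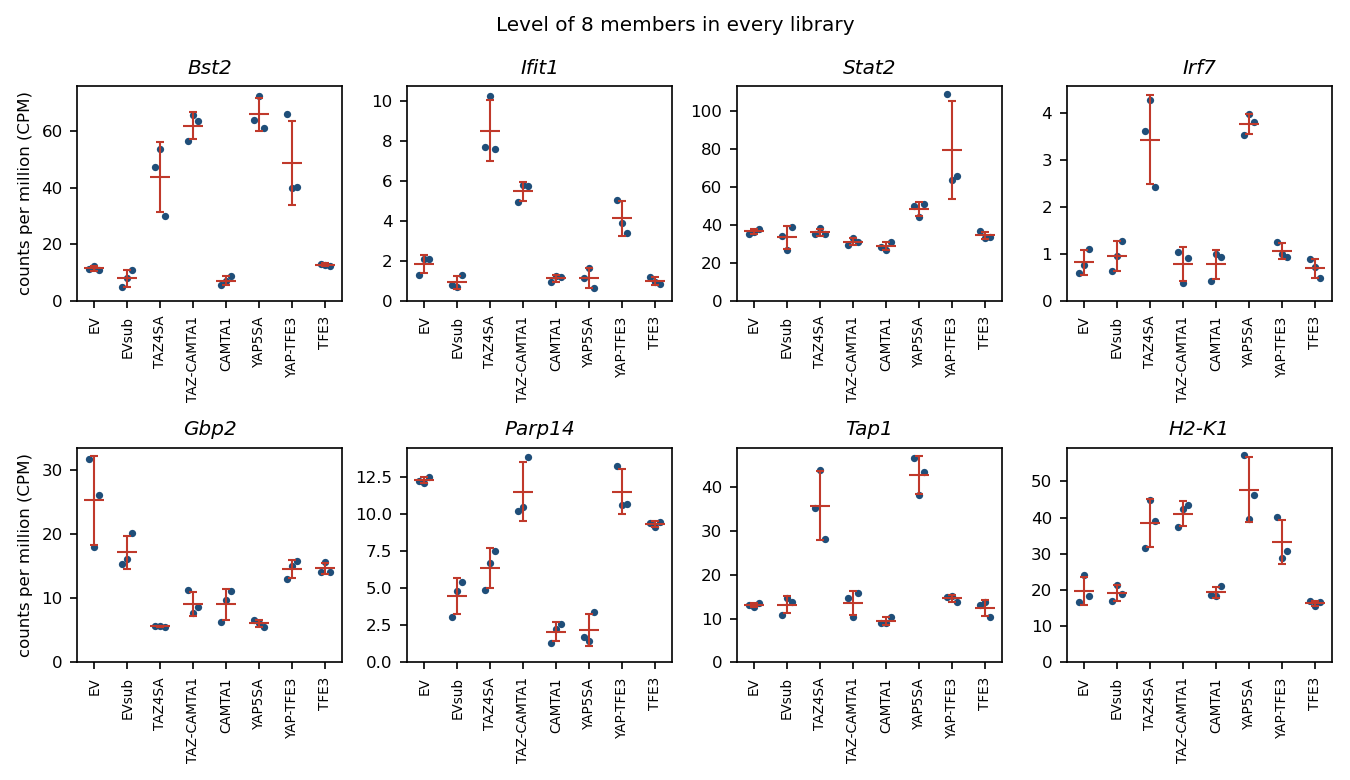
TMM-scaled CPM of Bst2, Ifit1, Stat2, Irf7, Gbp2, Parp14, Tap1 and H2-K1 in the 8 groups, each point 1 library and each red bar the mean ± SD of 3. Bst2 is high with all 4 TAZ and YAP proteins, Irf7 and Tap1 with TAZ4SA and YAP5SA, Stat2 most in YAP-TFE3 (63.7 to 109 CPM), and Gbp2 is highest in EV.

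In antigen presentation, the TAP subunit and both class I heavy chains of the list rose with the full-length proteins, and H2-K1 rose with all 4 TAZ and YAP proteins. Tap1, a subunit of the peptide transporter, was at 13.2, 12.6 and 13.5 CPM in EV, 10.9, 14.7 and 13.9 in EVsub, 8.91, 9.0 and 10.5 in CAMTA1 and 13.0, 13.8 and 10.5 in TFE3. Tap1 levels were 35.2, 44.0 and 28.2 CPM in TAZ4SA, 14.6, 10.4 and 15.8 in TAZ-CAMTA1, 46.8, 38.2 and 43.5 in YAP5SA and 15, 15.2 and 13.8 in YAP-TFE3. The TAZ4SA and YAP5SA libraries were above all others, at log2 fold change 1.45 ± 0.17 (SE), edgeR adjusted p = 2.29e-07 and log2 fold change 1.71 ± 0.17 (SE), edgeR adjusted p = 7.57e-09 against EV. H2-K1, a class I heavy chain, was at 16.8, 24.2 and 18.2 CPM in EV, 17.1, 21.4 and 18.9 in EVsub, 18.6, 18.5 and 21.1 in CAMTA1 and 16.9, 15.5 and 16.7 in TFE3. H2-K1 levels were 31.6, 44.9 and 39.1 CPM in TAZ4SA, 37.3, 42.4 and 43.5 in TAZ-CAMTA1, 57.2, 39.7 and 46.2 in YAP5SA and 40.3, 28.9 and 30.9 in YAP-TFE3. All 12 libraries of the TAZ and YAP proteins were above those of the other groups. The changes against EV were 0.96 ± 0.16 (SE) in TAZ4SA (edgeR adjusted p = 3.20e-05), 1.06 ± 0.16 (SE) in TAZ-CAMTA1 (edgeR adjusted p = 5.06e-05), 1.27 ± 0.16 (SE) in YAP5SA (edgeR adjusted p = 4.06e-07) and 0.76 ± 0.16 (SE) in YAP-TFE3 (edgeR adjusted p = 0.00202), and all 4 calls held under every alternative run. H2-D1, the second heavy chain, was at 188, 242 and 208 CPM in EV, 142, 193 and 159 in EVsub, 173, 158 and 158 in CAMTA1 and 239, 252 and 248 in TFE3. H2-D1 levels were 363, 481 and 297 CPM in TAZ4SA, 280, 282 and 268 in TAZ-CAMTA1, 491, 427 and 431 in YAP5SA and 293, 224 and 265 in YAP-TFE3. TAZ4SA and YAP5SA libraries were again the highest, at log2 fold change 0.84 ± 0.15 (SE), edgeR adjusted p = 4.35e-05 and log2 fold change 1.08 ± 0.15 (SE), edgeR adjusted p = 8.69e-07, and in TAZ-CAMTA1 the value was log2 fold change 0.38 ± 0.14 (SE), edgeR adjusted p = 0.0647. Reads of the 2 heavy chains can be shared, since class I genes are similar to each other and vary between mouse strains. B2m was at 543, 512 and 545 CPM in EV, 329, 341 and 466 in EVsub, 388, 300 and 330 in CAMTA1 and 567, 507 and 480 in TFE3. B2m levels were 514, 671 and 330 CPM in TAZ4SA, 628, 584 and 532 in TAZ-CAMTA1, 653, 689 and 560 in YAP5SA and 616, 484 and 638 in YAP-TFE3. The CAMTA1 and EVsub libraries lay below all EV libraries and the TAZ4SA libraries ran from 330 to 671 CPM, and no comparison passed the test, with log2 fold change -0.49 ± 0.18 (SE), edgeR adjusted p = 0.0594 in EVsub against EV. Psmb9, a subunit of the immunoproteasome that overlaps Tap1 on the opposite strand, was not called in any comparison, at -0.14 ± 0.40 (SE) in TAZ4SA and -0.32 ± 0.40 (SE) in YAP5SA, and its partner Psmb8 had at most 3 counts in a library.

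The sequence before the gene start is shown for 6 genes that moved in different ways: Bst2 and H2-K1, Ifit1, Stat2, Isg15 and Gbp2.
Promoter sequences were those of RefSeq on build GRCm38.p6, from 250 bases before to 50 after the start, printed 5′ to 3′ in the direction of the gene, with each match to the ISRE core in capitals on either strand.
The core searched was GAAA, any 2 bases, GAAA.
Bst2, chr8:71537423-71537722, minus strand: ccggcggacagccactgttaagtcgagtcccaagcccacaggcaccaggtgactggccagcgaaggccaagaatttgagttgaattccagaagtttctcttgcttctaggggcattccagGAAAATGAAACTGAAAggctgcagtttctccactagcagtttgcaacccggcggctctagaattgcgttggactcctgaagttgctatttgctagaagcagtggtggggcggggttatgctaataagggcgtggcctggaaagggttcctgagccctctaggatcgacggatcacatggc
Ifit1, chr19:34640639-34640938, plus strand: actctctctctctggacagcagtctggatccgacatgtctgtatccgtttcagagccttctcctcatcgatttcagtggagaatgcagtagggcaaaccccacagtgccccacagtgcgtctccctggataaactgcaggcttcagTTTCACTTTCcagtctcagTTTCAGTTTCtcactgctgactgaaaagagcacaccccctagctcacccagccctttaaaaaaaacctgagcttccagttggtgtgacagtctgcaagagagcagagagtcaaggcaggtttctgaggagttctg
Stat2, chr10:128270248-128270547, plus strand: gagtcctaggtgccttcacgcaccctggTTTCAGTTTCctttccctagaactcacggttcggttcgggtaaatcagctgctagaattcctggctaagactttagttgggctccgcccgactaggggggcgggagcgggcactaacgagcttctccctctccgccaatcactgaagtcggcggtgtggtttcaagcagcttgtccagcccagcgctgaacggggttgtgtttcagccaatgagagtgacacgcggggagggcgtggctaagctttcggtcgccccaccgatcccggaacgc
Isg15, chr4:156200769-156201068, minus strand: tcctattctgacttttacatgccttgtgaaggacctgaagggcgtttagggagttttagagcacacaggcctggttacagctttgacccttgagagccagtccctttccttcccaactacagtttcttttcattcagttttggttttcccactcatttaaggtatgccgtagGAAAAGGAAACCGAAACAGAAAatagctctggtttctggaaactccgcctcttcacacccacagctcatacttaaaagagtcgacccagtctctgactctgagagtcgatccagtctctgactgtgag
Gbp2, chr3:142620413-142620712, plus strand: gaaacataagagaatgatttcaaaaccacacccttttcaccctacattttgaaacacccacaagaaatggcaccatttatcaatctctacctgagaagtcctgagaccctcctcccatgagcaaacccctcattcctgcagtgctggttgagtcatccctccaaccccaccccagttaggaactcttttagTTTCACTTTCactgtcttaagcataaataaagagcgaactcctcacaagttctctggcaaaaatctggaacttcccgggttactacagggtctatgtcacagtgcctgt
H2-K1, chr17:34000298-34000597, minus strand: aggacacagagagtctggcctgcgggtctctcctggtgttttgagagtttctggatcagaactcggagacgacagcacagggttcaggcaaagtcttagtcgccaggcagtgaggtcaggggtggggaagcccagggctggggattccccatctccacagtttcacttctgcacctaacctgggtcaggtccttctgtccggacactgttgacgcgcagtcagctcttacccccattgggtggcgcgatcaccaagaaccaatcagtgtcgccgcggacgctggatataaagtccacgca
The ISRE cores began 130 and 124 bases before the start of Bst2, 104 and 85 before Ifit1, 222 before Stat2, 78, 72 and 66 before Isg15 and 59 before Gbp2, and the H2-K1 window held no exact match. Only exact matches to the core were searched, so a response element that differs from it would be missed.

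Of the 46 genes, 34 had an entry in the promoter table, with 40 promoters between them. The ISRE core was in 45.0% of these promoters and in 3.44% of all 32851 promoters of the table. The GAS core (TTCNNNGAA) was in 22.5% and 8.30%, the TEAD core (GGAATG), bound by the partners of TAZ and YAP, in 7.50% and 14.7%, and the E-box CACGTG, bound by TFE3, in 2.50% and 7.15%, each searched on both strands. An ISRE and a GAS match overlapped in 1 promoter. The TEAD core was in the windows of Bst2, Trim30a and Gbp2 and the E-box in that of Trim25. The ISRE core was found on both sides of the calls: among genes with an entry, in 6 of 15 that rose and 4 of 6 that fell in TAZ4SA, and in 3 of 9 that rose and 6 of 9 that fell in YAP5SA. In YAP-TFE3 it was in 5 of the 6 that rose, H2-K1 being the exception, and in Gbp2, the 1 that fell with an entry. The Trim30a and Irgm1 calls there were lost without single libraries. In TAZ-CAMTA1 the core was in 2 of 4 that rose and 2 of 3 that fell. Among genes not called it was in 4 of 7 in TAZ4SA, 5 of 10 in YAP5SA, 8 of 21 in YAP-TFE3 and 10 of 21 in TAZ-CAMTA1. Of all 34 with an entry, 17 held it. A link between the core and the direction of the calls was not tested. These matches are of letters only.

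Set directly against the full-length proteins, TAZ-CAMTA1 was lower in more of these genes than it was higher, and at a larger share than among all genes. YAP-TFE3 was higher in more of them than it was lower. Its share of higher genes was not far from that of all genes, and its share of lower genes was smaller than that of all genes. In TAZ-CAMTA1 against TAZ4SA, 4 of the 37 genes were higher (Ifit2, Parp14, Gbp2 and Mx1) and 20 lower, where 26.6% of all genes were higher and 28.1% lower, and the medians were -0.62 over the 37 genes and 0.00 over all genes. The lower genes include Ifi44, which passed the limit on counts only through TAZ4SA. In YAP-TFE3 against YAP5SA, 16 were higher and 8 lower, where 36.4% and 34.5% of all genes were, and the medians were 0.23 and 0.05. These comparisons use the same TAZ4SA and YAP5SA libraries as the comparisons of TAZ4SA and YAP5SA with EV, so they are not separate results. With library totals alone, which moved the medians of all genes to 0.17 and 0.41, the counts were 7 higher and 18 lower, and 18 higher and 5 lower. The shares of all genes called under that scaling were not counted. Without TAZ-CAMTA1 replicate 1 the number higher than in TAZ4SA was 2. Over the libraries left out the number higher in YAP-TFE3 than in YAP5SA was 12 to 15. The Mx1 call in TAZ-CAMTA1 against TAZ4SA (log2 fold change 1.38 ± 0.54 (SE), edgeR adjusted p = 0.0397) was lost by DESeq2 and with no filter on low counts, and was lost without TAZ4SA replicate 1 or 2 or 3 or TAZ-CAMTA1 replicate 1 or 2 (adjusted p between 0.0638 and 0.124). From the values already given by library, Rtp4 (log2 fold change -2.80 ± 0.26 (SE), edgeR adjusted p = 2.42e-08) and Irgm1 (log2 fold change -1.39 ± 0.14 (SE), edgeR adjusted p = 1.10e-07) were lower and Ifit2 (log2 fold change 1.34 ± 0.19 (SE), edgeR adjusted p = 5.80e-06) and Parp14 (log2 fold change 0.86 ± 0.25 (SE), edgeR adjusted p = 0.00575) higher in TAZ-CAMTA1 than in TAZ4SA. Trim30a (log2 fold change 2.23 ± 0.23 (SE), edgeR adjusted p = 1.66e-08) and Parp9 (log2 fold change 1.17 ± 0.13 (SE), edgeR adjusted p = 3.85e-08) were higher and Tap1 (log2 fold change -1.55 ± 0.17 (SE), edgeR adjusted p = 3.32e-08) and Ifi35 (log2 fold change -1.41 ± 0.17 (SE), edgeR adjusted p = 1.51e-07) lower in YAP-TFE3 than in YAP5SA. Among the other genes higher in YAP-TFE3 than in YAP5SA, the log2 fold change was 3.36 ± 0.64 (SE) for Gbp7, 2.19 ± 0.34 (SE) for Gbp3 and 2.41 ± 0.27 (SE) for Parp14, and Mx1 was at least 1.84-fold higher (edgeR adjusted p = 1.74e-04). The Gbp7 value was 2.75 without YAP5SA replicate 1 and 4.80 without YAP5SA replicate 3.

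Irf7, Oas1b, Ifi35, Trim25, Irgm1, Tap1 and H2-D1 were lower in both fusions than in the matching full-length protein. The log2 fold changes of Irf7 were -2.10 ± 0.35 (SE) in TAZ-CAMTA1 and -1.83 ± 0.33 (SE) in YAP-TFE3, those of Tap1 -1.39 ± 0.17 (SE) and -1.55 ± 0.17 (SE), and those of H2-D1 -0.46 ± 0.14 (SE) and -0.79 ± 0.14 (SE). The H2-D1 call against TAZ4SA was lost without TAZ4SA replicate 2 (adjusted p = 0.122), with library totals alone (adjusted p = 0.0593) and with only the 2 groups compared (adjusted p = 0.0814). Against YAP5SA the Trim25 call (log2 fold change -0.36 ± 0.11 (SE), edgeR adjusted p = 0.00741) and the Irgm1 call (log2 fold change -0.50 ± 0.14 (SE), edgeR adjusted p = 0.00325) were lost with library totals alone (adjusted p = 0.999 and 0.373). Against TAZ4SA the Trim25 call was lost with only the 2 groups compared (adjusted p = 0.0508). Bst2 did not pass in either direct comparison, at log2 fold change 0.51 ± 0.22 (SE), edgeR adjusted p = 0.0587 and log2 fold change -0.44 ± 0.22 (SE), edgeR adjusted p = 0.0814. For H2-K1 the values were log2 fold change 0.10 ± 0.16 (SE), edgeR adjusted p = 0.632 in TAZ-CAMTA1 and log2 fold change -0.52 ± 0.16 (SE), edgeR adjusted p = 0.00608 in YAP-TFE3, and the second call was lost without YAP5SA replicate 1 (adjusted p = 0.0598) and with library totals alone (adjusted p = 0.341).

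The comparison of YAP5SA with TAZ4SA was added after the values had been seen. It uses the same TAZ4SA libraries as TAZ4SA against EV and TAZ-CAMTA1 against TAZ4SA, so the counts of these comparisons are not separate results. In YAP5SA against TAZ4SA 3 of the 37 genes were higher in YAP5SA (Ifit2, Bst2 and Stat2) and 22 lower, where 19.6% of all genes were higher and 22.8% lower, with medians of -0.85 over the 37 genes and -0.05 over all genes. The 22 included 8 of 13 effectors, 6 of 7 modification genes, 3 of 3 sensors and 3 of 5 GTPases, and none of the 5 antigen presentation genes was called in either direction. Among the 8 effectors, Mx1 had 0 counts in every YAP5SA library and 3, 2 and 4 in TAZ4SA. Against the floor of 3 counts per library its bound was 0.966-fold, so no size can be given for it. Ifi44, also among them, passed the limit on counts only through TAZ4SA. Ifit1 (log2 fold change -2.86 ± 0.28 (SE), edgeR adjusted p = 2.11e-07) and Rtp4 (log2 fold change -2.17 ± 0.25 (SE), edgeR adjusted p = 1.65e-06) had the smallest p among the lower genes. Isg15 (-1.44 ± 0.29 (SE)), Oasl2 (-2.78 ± 0.41 (SE)) and Ifih1 (-1.75 ± 0.28 (SE)) were also lower, while Irf7 (log2 fold change 0.15 ± 0.31 (SE), edgeR adjusted p = 0.724) and Tap1 (log2 fold change 0.26 ± 0.16 (SE), edgeR adjusted p = 0.196) did not pass. The Ifit2 call (log2 fold change 0.52 ± 0.19 (SE), edgeR adjusted p = 0.0333) was lost without TAZ4SA replicate 1 or 2 or 3 or YAP5SA replicate 1 or 2 or 3 (adjusted p between 0.0503 and 0.112), the Bst2 call (log2 fold change 0.60 ± 0.22 (SE), edgeR adjusted p = 0.0348) was lost without TAZ4SA replicate 3 or YAP5SA replicate 1 or 2 (adjusted p between 0.0629 and 0.194) and the Stat2 call (log2 fold change 0.41 ± 0.16 (SE), edgeR adjusted p = 0.0376) was lost without TAZ4SA replicate 1 or 3 or YAP5SA replicate 1 or 3 (adjusted p between 0.0934 and 0.105). The number higher was 6 without TAZ4SA replicate 2, 1 without TAZ4SA replicate 1 or YAP5SA replicate 2 or 3, and 0 without TAZ4SA replicate 3 or YAP5SA replicate 1. With library totals alone, which moved the median of all genes to -0.25, 0 were higher and 25 lower, and the shares of all genes were not counted.

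**Figure D4:**
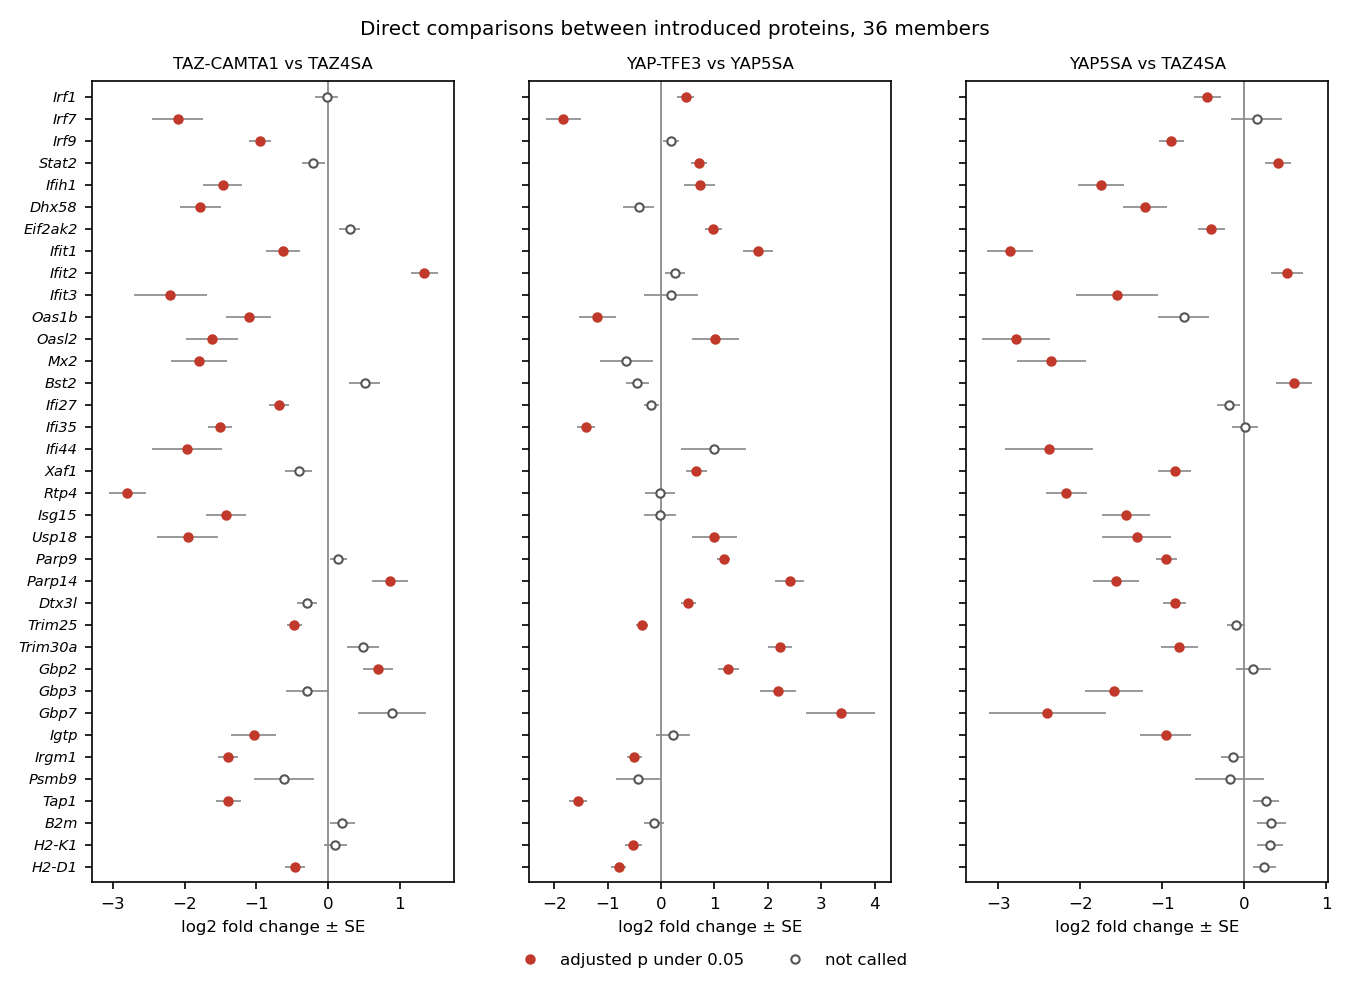
Log2 fold change ± SE of 36 genes (Mx1 left out) in TAZ-CAMTA1 against TAZ4SA, YAP-TFE3 against YAP5SA and YAP5SA against TAZ4SA, with filled points for genes that passed the test. Most effectors lie below 0 in the comparisons with TAZ4SA, and the Gbp genes, Parp14 and Trim30a lie above 0 in YAP-TFE3 against YAP5SA.

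Upstream of these genes, the interferon transcripts themselves were near 0. The 9 interferon genes listed had 50 counts in all 24 libraries together, with a highest value of 5 counts for Ifne in one library, and Ifnb1, the main interferon of fibroblasts, had 8 counts in all. Among 8 genes, the interferon receptors, their kinases and Stat3, 2 rose and 1 fell in TAZ4SA and in YAP5SA, 2 rose and 2 fell in TAZ-CAMTA1 and 2 rose in YAP-TFE3. For this and the following lists, the shares of all genes that rose and fell were 31.1% and 26.4% in TAZ4SA, 36.3% and 34.9% in YAP5SA, 12.5% and 8.98% in TAZ-CAMTA1 and 10.6% and 4.74% in YAP-TFE3. The 8 genes, with 25.0% higher and 12.5% lower, lay below those shares in TAZ4SA and YAP5SA. Ifngr1, the ligand-binding chain of the interferon gamma receptor, was at 32.8, 38.4 and 37.3 CPM in EV, 39.1, 43.2 and 41.1 in EVsub, 40.0, 34.9 and 37.2 in CAMTA1 and 32.0, 30.3 and 29.9 in TFE3. Ifngr1 levels were 70.6, 68.1 and 63.3 CPM in TAZ4SA, 78.5, 89.0 and 90.2 in TAZ-CAMTA1, 85.7, 85.7 and 71.7 in YAP5SA and 67.1, 52.1 and 56.4 in YAP-TFE3. All libraries of the 4 TAZ and YAP proteins were above EV, with 0.90 ± 0.10 (SE) in TAZ4SA (edgeR adjusted p = 3.01e-07), 1.25 ± 0.11 (SE) in TAZ-CAMTA1 (edgeR adjusted p = 2.22e-08), 1.16 ± 0.11 (SE) in YAP5SA (edgeR adjusted p = 2.41e-09) and 0.69 ± 0.10 (SE) in YAP-TFE3 (edgeR adjusted p = 5.76e-05). Jak2 fell in YAP5SA (log2 fold change -0.85 ± 0.15 (SE), edgeR adjusted p = 3.63e-05), Tyk2 and Stat3 fell in TAZ-CAMTA1 (log2 fold change -0.45 ± 0.12 (SE), edgeR adjusted p = 0.00831 and log2 fold change -0.58 ± 0.17 (SE), edgeR adjusted p = 0.0188) and Jak1 rose in YAP-TFE3 (log2 fold change 0.31 ± 0.09 (SE), edgeR adjusted p = 0.0185). The Tyk2 call was lost without EV replicate 1 (adjusted p = 0.0587). The Stat3 call was lost without EV replicate 2 or TAZ-CAMTA1 replicate 2 or 3 (adjusted p between 0.0601 and 0.0954), and the Jak1 call was lost without EV replicate 2 or 3 or YAP-TFE3 replicate 1 (adjusted p between 0.0642 and 0.193). That of Jak1 was also lost when low counts were not filtered (adjusted p = 0.122).

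Among 10 pattern receptors and adaptors, 3 rose and 3 fell in TAZ4SA, 4 rose and 3 fell in YAP5SA, 1 rose in YAP-TFE3 and none was called in TAZ-CAMTA1, which in TAZ4SA (30.0% and 30.0%) and YAP5SA (40.0% and 30.0%) is close to the shares of all genes. Mavs, the mitochondrial adaptor of RNA sensing, was at 39.3, 37.4 and 38.5 CPM in EV, 46.3, 52.2 and 46.2 in EVsub, 48.5, 45.2 and 43.6 in CAMTA1 and 31.6, 31.6 and 30.8 in TFE3. Mavs levels were 60.1, 78.3 and 53.1 CPM in TAZ4SA, 36.7, 40.9 and 42.6 in TAZ-CAMTA1, 91.3, 88.8 and 96.6 in YAP5SA and 43.4, 42.9 and 42.8 in YAP-TFE3. Its TAZ4SA and YAP5SA libraries were above all others, at log2 fold change 0.73 ± 0.11 (SE), edgeR adjusted p = 6.51e-06 and log2 fold change 1.26 ± 0.11 (SE), edgeR adjusted p = 1.13e-09. Ddx58 (RIG-I) likewise rose in TAZ4SA (log2 fold change 0.97 ± 0.16 (SE), edgeR adjusted p = 2.14e-05) and YAP5SA (log2 fold change 1.00 ± 0.16 (SE), edgeR adjusted p = 7.70e-06), as did Ticam1, the adaptor of TLR3 (log2 fold change 1.12 ± 0.19 (SE), edgeR adjusted p = 4.48e-05 and log2 fold change 1.18 ± 0.19 (SE), edgeR adjusted p = 1.28e-05). The kinases downstream went the other way. Ikbke fell in TAZ4SA (log2 fold change -0.76 ± 0.14 (SE), edgeR adjusted p = 1.07e-04) and YAP5SA (log2 fold change -1.25 ± 0.15 (SE), edgeR adjusted p = 1.05e-07), and Tbk1 in both (log2 fold change -0.33 ± 0.14 (SE), edgeR adjusted p = 0.0478 and log2 fold change -0.81 ± 0.14 (SE), edgeR adjusted p = 2.10e-05). The Tbk1 call in TAZ4SA was lost without EV replicate 1 or 2 or 3 or TAZ4SA replicate 2 (adjusted p between 0.0676 and 0.298).

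Of 5 feedback regulators, Socs1, an inhibitor of JAK kinases, fell in TAZ4SA (log2 fold change -0.85 ± 0.30 (SE), edgeR adjusted p = 0.0189) and YAP5SA (log2 fold change -1.38 ± 0.31 (SE), edgeR adjusted p = 3.85e-04), with 2.58 to 5.98 CPM in TAZ4SA and 2.22 to 4.11 in YAP5SA against 6.88 to 9.75 in EV. The Socs1 call in TAZ4SA was lost without EV replicate 1 or TAZ4SA replicate 1 (adjusted p between 0.0741 and 0.128). Ptpn6, a phosphatase at a low level, rose in TAZ4SA (log2 fold change 2.62 ± 0.50 (SE), edgeR adjusted p = 1.24e-04), TAZ-CAMTA1 (log2 fold change 2.48 ± 0.49 (SE), edgeR adjusted p = 8.92e-04) and YAP-TFE3 (log2 fold change 2.22 ± 0.50 (SE), edgeR adjusted p = 0.00336). In all, 2 of the 5 rose and 1 fell in TAZ4SA, 1 fell in YAP5SA, 2 rose in TAZ-CAMTA1 and 1 rose in YAP-TFE3. That is 40.0% higher and 20.0% lower in TAZ4SA and 20.0% lower in YAP5SA.

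Among 16 other tested genes of antigen presentation, 3 rose and 3 fell in TAZ4SA, 4 rose and 2 fell in YAP5SA, 3 rose and 2 fell in TAZ-CAMTA1 and 3 rose in YAP-TFE3. The shares of 18.8% and 18.8% in TAZ4SA and 25.0% and 12.5% in YAP5SA lay below those of all genes. Nlrc5, the transactivator of class I genes, separated the fusions from the full-length proteins. It was at 0.296, 0.286 and 0.531 CPM in EV, 0.182, 0.285 and 0.423 in EVsub, 0.433, 0.333 and 0.526 in CAMTA1 and 1.16, 0.886 and 0.558 in TFE3. Nlrc5 levels were 0.347, 0.450 and 0.352 CPM in TAZ4SA, 2.67, 3.59 and 4.23 in TAZ-CAMTA1, 0.462, 0.491 and 0.0634 in YAP5SA and 3.71, 2.48 and 2.42 in YAP-TFE3. The 6 libraries of the fusions lay above the other 18. Those of TFE3 came next and lay above all EV libraries. Nlrc5 rose in TAZ-CAMTA1 (log2 fold change 3.22 ± 0.38 (SE), edgeR adjusted p = 2.00e-06) and YAP-TFE3 (log2 fold change 2.92 ± 0.38 (SE), edgeR adjusted p = 1.18e-05), and against the full-length proteins by 3.20 ± 0.39 (SE) (edgeR adjusted p = 8.31e-07) and 2.99 ± 0.40 (SE) (edgeR adjusted p = 7.49e-07), whereas in TAZ4SA and YAP5SA the values against EV were 0.02 ± 0.49 (SE) and -0.07 ± 0.50 (SE). H2-T23, a nonclassical class I gene, rose in TAZ4SA (log2 fold change 1.02 ± 0.27 (SE), edgeR adjusted p = 0.00298) and YAP5SA (log2 fold change 1.47 ± 0.27 (SE), edgeR adjusted p = 5.50e-05). Tapbpl, a peptide editor of class I, fell in both (log2 fold change -1.15 ± 0.12 (SE), edgeR adjusted p = 5.12e-08 and log2 fold change -0.71 ± 0.12 (SE), edgeR adjusted p = 1.05e-05). Psmb10, a catalytic subunit of the immunoproteasome, rose in YAP-TFE3 (log2 fold change 0.79 ± 0.17 (SE), edgeR adjusted p = 0.00236) and fell in TAZ4SA (log2 fold change -0.77 ± 0.18 (SE), edgeR adjusted p = 8.55e-04). Cd74, the invariant chain of MHC class II, rose in TAZ4SA (log2 fold change 4.24 ± 0.68 (SE), edgeR adjusted p = 1.81e-05) and YAP5SA (log2 fold change 1.99 ± 0.83 (SE), edgeR adjusted p = 0.0360), from at most 0.191 CPM in EV to between 1.19 and 3.90 CPM in TAZ4SA and between 0.343 and 0.565 CPM in YAP5SA. Cd74 had 28, 52 and 27 counts in TAZ4SA and at most 13 in any other library. It passed the limit on counts only through TAZ4SA, so its call there is not independent of the limit. At these low levels the TAZ4SA value was 4.89 without EV replicate 2 and 3.56 without TAZ4SA replicate 2, and the YAP5SA value was 2.64 without EV replicate 2. The YAP5SA call was lost without EV replicate 1 or 3 or YAP5SA replicate 1 (adjusted p between 0.0900 and 0.115) and with library totals alone (adjusted p = 0.0743).

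Among 33 other tested interferon-stimulated genes, 6 rose and 10 fell in TAZ4SA, 8 rose and 15 fell in YAP5SA, 8 rose and 5 fell in TAZ-CAMTA1 and 9 rose and 2 fell in YAP-TFE3. In TAZ4SA 18.2% of them rose, below the 31.1% of all genes and unlike the 56.8% of the 37 genes, and 30.3% fell. In YAP5SA 24.2% rose and 45.5% fell, in TAZ-CAMTA1 24.2% and 15.2%, and in YAP-TFE3 27.3% and 6.1%. Lgals9 (galectin-9) was at 54.7, 47.3 and 57.9 CPM in EV, 50.7, 48.2 and 70.4 in EVsub, 66.7, 57.8 and 59.2 in CAMTA1 and 47.8, 42.5 and 43.9 in TFE3. Lgals9 levels were 152, 213 and 215 CPM in TAZ4SA, 74.9, 77.7 and 68.7 in TAZ-CAMTA1, 314, 233 and 242 in YAP5SA and 127, 86.0 and 98.4 in YAP-TFE3. It rose with all 4 TAZ and YAP proteins, by 1.86 ± 0.17 (SE) in TAZ4SA (edgeR adjusted p = 7.41e-09), 0.47 ± 0.16 (SE) in TAZ-CAMTA1 (edgeR adjusted p = 0.0424), 2.30 ± 0.17 (SE) in YAP5SA (edgeR adjusted p = 1.05e-10) and 0.96 ± 0.16 (SE) in YAP-TFE3 (edgeR adjusted p = 2.16e-04). The TAZ-CAMTA1 call was lost without EV replicate 1 or 2 or 3 or TAZ-CAMTA1 replicate 1 or 2 or 3 (adjusted p between 0.0619 and 0.136). It was also lost with RLE size factors, with library totals alone and with the stricter filter (adjusted p = 0.0523, 0.0597 and 0.0569). Helz2, a helicase cofactor, rose in TAZ4SA (log2 fold change 1.00 ± 0.11 (SE), edgeR adjusted p = 1.19e-07) and YAP5SA (log2 fold change 0.70 ± 0.11 (SE), edgeR adjusted p = 5.94e-06). Gbp9 fell with all 4, with log2 fold changes of -1.13 ± 0.26 (SE), -1.95 ± 0.27 (SE), -2.83 ± 0.30 (SE) and -1.54 ± 0.26 (SE) in the same order, and also in EVsub (log2 fold change -1.58 ± 0.26 (SE), edgeR adjusted p = 2.09e-04). Trim21, an intracellular antibody receptor, fell in TAZ4SA (log2 fold change -0.71 ± 0.13 (SE), edgeR adjusted p = 1.18e-04) and YAP5SA (log2 fold change -1.26 ± 0.14 (SE), edgeR adjusted p = 4.10e-08), and Ifi204, a DNA sensor, in both (log2 fold change -0.92 ± 0.19 (SE), edgeR adjusted p = 3.57e-04 and log2 fold change -2.00 ± 0.20 (SE), edgeR adjusted p = 1.51e-08).

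**Figure D5:**
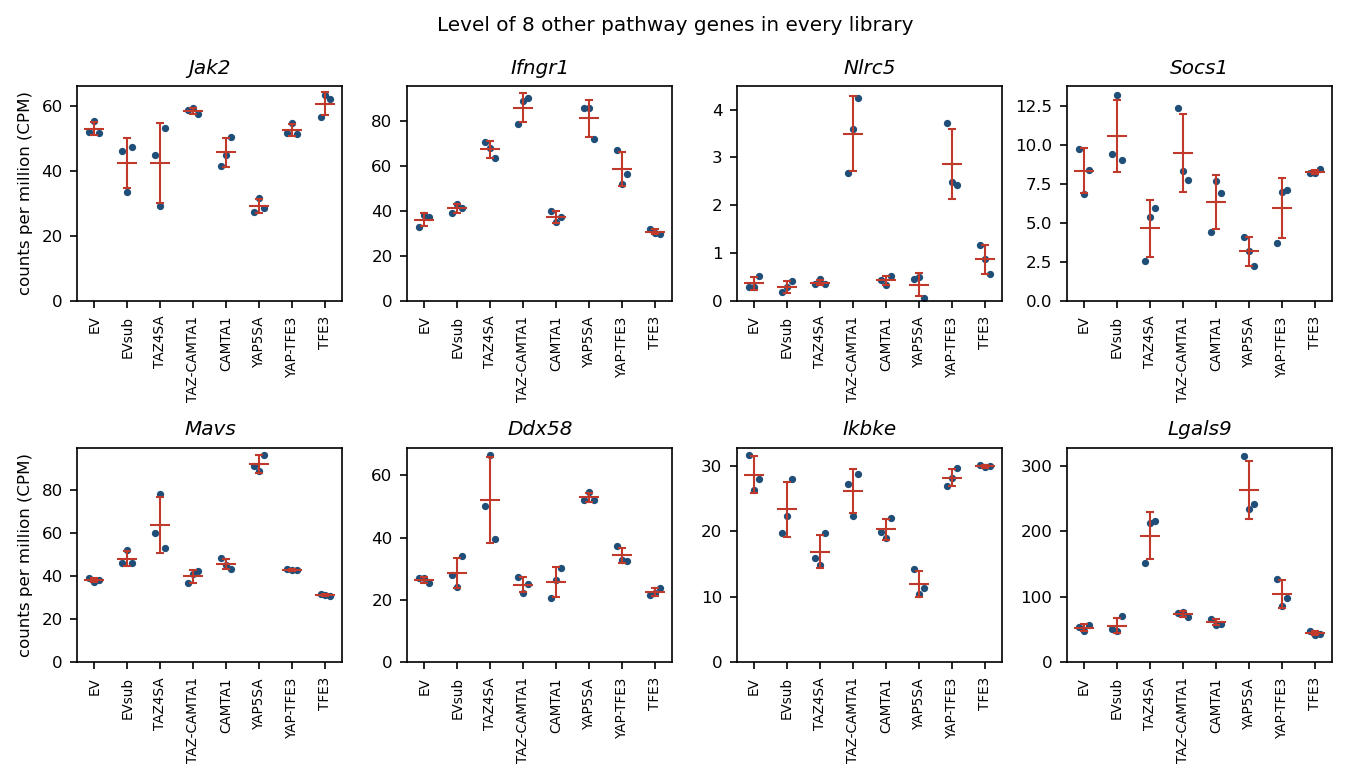
TMM-scaled CPM of Jak2, Ifngr1, Nlrc5, Socs1, Mavs, Ddx58, Ikbke and Lgals9 in the 8 groups, each point 1 library and each red bar the mean ± SD of 3. Nlrc5 is highest in TAZ-CAMTA1 and YAP-TFE3, followed by TFE3. Jak2 is low in YAP5SA, and Socs1 and Ikbke are low and Mavs, Ddx58 and Lgals9 high in TAZ4SA and YAP5SA.

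The 9 genes of the list below the limit were Zbp1, Oas1a, Oas2, Oas3, Oasl1, Rsad2, Cmpk2, Iigp1 and Psmb8. Oas2, a synthetase of the RNase L pathway, had 9, 8 and 8 counts in TAZ4SA, no count in EV, EVsub, CAMTA1 and TFE3, and at most 2 in the other groups. Rsad2 (viperin) had 19, 9 and 1 counts in YAP-TFE3 and at most 3 in any other library. Zbp1 had 9, 3 and 6 counts in TAZ4SA and 1, 3 and 0 in EV. The other 6 had at most 6 counts in a library. These counts were too low for a statement on the groups.

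Some markers of fibroblasts and of other cell types moved with the same 2 groups as many of these genes. Of the 7 fibroblast markers, Pdgfra was at 1176 to 1212 CPM in EV, 406 to 550 in TAZ4SA and 156 to 291 in YAP5SA. Pdgfrb was at 484 to 656, 197 to 219 and 139 to 147. Both fell in both groups, while Thy1 rose in both (log2 fold change 1.66 and 2.36). Vim rose in YAP5SA (log2 fold change 1.19, edgeR adjusted p = 3.80e-07) and was not called in TAZ4SA. The collagen genes Col1a1, Col1a2 and Col3a1 were not called in either group. The 6 immune markers summed to 3.10 to 4.38 CPM in EV, 16.4 to 67.5 in TAZ4SA and 83.6 to 132 in YAP5SA, and to 2.22 to 6.66 in the other groups. Cd68 and Csf1r made up most of the sum, at 12.1 to 56.0 and 3.43 to 8.83 CPM in TAZ4SA and 46.5 to 77.8 and 30.4 to 53.4 CPM in YAP5SA. All 3 of the 6 that passed the limit on counts (Cd68, Csf1r and Itgam) rose in TAZ4SA and in YAP5SA. Itgam had 51, 9 and 17 counts in TAZ4SA, 21, 28 and 15 in YAP5SA and at most 4 in any other library. It passed the limit only through these groups, so its calls there are not independent of the limit. The defining leukocyte marker Ptprc (CD45) was at most 0.176 CPM in any library, Adgre1 had no count in any library, and Cd3e reached 0.0501 CPM in 1 library. Of the dendritic markers, Siglech was at 0 throughout and the 3 markers summed to at most 0.223 CPM. Of the 4 endothelial markers, which summed to 2.34 to 4.51 CPM in EV, 8.49 to 12.1 in TAZ4SA and 7.46 to 8.21 in YAP5SA, Kdr was at 7.61 to 11.2 CPM in TAZ4SA and 6.21 to 6.72 in YAP5SA and at most 0.177 in EV. Tek went the other way, at 2.20 to 4.29 CPM in EV, 0.149 to 0.30 in TAZ4SA and 0.245 to 1.18 in YAP5SA. Cdh5 rose in both groups from at most 0.0442 CPM in EV (log2 fold change 3.65 and 4.19) and was highest in TAZ-CAMTA1, at 1.33 to 2.05 CPM. It passed the limit on counts only through TAZ-CAMTA1, where it had 33, 44 and 41 counts. The epithelial marker Cdh1, at most 0.253 CPM in EV, fell in both (log2 fold change -2.38 and -2.37). The part of these genes in the results for TAZ4SA and YAP5SA was not tested.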

How the data were processed

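RNA-seq libraries from 24 NIH 3T3 cultures in 8 groups of 3 were compared. Per the labels and the study's methods, poly(A) RNA was made into stranded paired-end libraries, with the triplicates from separate transductions, and aligned with Hisat2 to mm10; the methods also name Salmon with tximport for gene-level counts, and whether the deposited whole numbers come from it or from the alignments, and with which strand setting, is not given in the sources used here. The authors deposited raw counts per Ensembl gene, which were used as deposited. Identifiers were named from GENCODE M21 (37607 of 39017 matched). Counts were scaled by TMM and tested with the quasi-likelihood test of edgeR 4.0.16 in R 4.3.3, with all 24 libraries in 1 fit, a coefficient per group, a limit of 5 counts on the mean over libraries, and Benjamini-Hochberg adjusted p under 0.05 over 14361 genes. The script was tested on simulated data.

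The members and lists were chosen with earlier results of these data known, and the comparison of YAP5SA with TAZ4SA was added after its values had been seen. In each role group, values by library are given for the member of highest level per kilobase, the 3 of widest range between group means, and, in each comparison, the 2 members of smallest p in each direction. In the other lists up to 5 genes of smallest adjusted p are named. From the lists of other pathway genes and of markers, 2 genes are not reported here. Alternatives were DESeq2 1.42.0, other size factors, other filters on low counts (24737 and 11461 genes tested), a replicate block, a fit of the 2 groups alone and leaving out each library; scaling by library totals alone was added after the data had been seen. The p-values measure the spread between 3 cultures of 1 cell line. The title of 1 YAP-TFE3 library gives another replicate number than its description, and the title was used.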

Additional observations from a re-analysis of the deposited data

How the results depend on the processing

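No call of the 37 genes changed direction under any alternative run. With 3 libraries a group and low counts for many of these genes, calls near the threshold moved. The same calls were made for 350 of 364 member results by DESeq2 (3 lost, 11 gained), 366 of 370 with RLE size factors, 351 of 370 with no filter on low counts, 262 of 270 with at least 10 counts in every library, 325 of 370 with only the 2 groups compared and 333 of 370 with library totals alone. The replicate block kept 366 of 370 and lost 4, and no comparison had all 3 pairs of same-numbered libraries correlated above 0.1, so the libraries share only a number.

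In TFE3 against EV the number of genes higher was 0 with the stricter filter, the number lower was 1 with the replicate block, and with only the 2 groups compared they were 2 and 8. In CAMTA1 against EVsub the number higher was 2 by DESeq2 and with no filter, and with only the 2 groups compared 0 were higher and 0 lower. With only the 2 groups compared 7 were lower in EVsub than in EV, and 1 was higher in YAP5SA than in TAZ4SA. With library totals alone 7 were higher in TAZ-CAMTA1 than in TAZ4SA, 5 lower in YAP-TFE3 than in YAP5SA and 0 higher in YAP5SA than in TAZ4SA. The cause of these changes was not tested, and the shares of all genes called under these settings were not counted.

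Leaving out 1 library gave 18 to 21 genes higher and 5 to 8 lower in TAZ4SA, 4 to 5 and 2 to 5 in TAZ-CAMTA1, 8 to 10 and 12 to 14 in YAP5SA, 4 to 5 and 0 to 4 in YAP-TFE3, 0 to 1 and 0 to 2 in TFE3, 0 to 2 and 0 to 6 in CAMTA1, and 0 to 0 and 5 to 16 in EVsub. In TAZ-CAMTA1 against TAZ4SA it gave 2 to 6 and 18 to 22, in YAP-TFE3 against YAP5SA 12 to 15 and 7 to 9, and in YAP5SA against TAZ4SA 0 to 6 and 17 to 22. Calls that held under every alternative numbered 17 of 21 higher and 4 of 9 lower in TAZ4SA, 7 of 10 and 12 of 13 in YAP5SA, 4 of 4 and 2 of 4 in TAZ-CAMTA1 and 4 of 6 and 0 of 2 in YAP-TFE3, and none in TFE3 and CAMTA1.

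Of the named pathway genes outside the 37, 4 values changed direction with library totals alone, none of them called both before and after: in YAP-TFE3 against YAP5SA the log2 fold change became 0.04 for Irf2, 0.28 for Tyk2 and 0.35 for Stat3, and in YAP5SA against EV it became -0.30 for Jak1.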

Other observations

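The enzymes that attach ISG15 to other proteins were looked at after their values had been seen. Uba7, which activates ISG15, Ube2l6, which conjugates it, and Herc6, the ligase of mouse cells, all rose in TAZ-CAMTA1 against EV, by 0.67 ± 0.21 (SE), 0.77 ± 0.24 (SE) and 0.71 ± 0.24 (SE) on the log2 scale (edgeR adjusted p = 0.0232, 0.0226 and 0.0381). In YAP-TFE3 the values were 0.41 ± 0.21 (SE), 1.30 ± 0.24 (SE) and 1.49 ± 0.24 (SE) (edgeR adjusted p = 0.220, 4.49e-04 and 1.17e-04), so that Uba7 did not pass. In YAP5SA Uba7 (log2 fold change -1.56 ± 0.23 (SE), edgeR adjusted p = 3.47e-06) and Herc6 (log2 fold change -0.65 ± 0.26 (SE), edgeR adjusted p = 0.0291) fell. The calls in TAZ-CAMTA1 rested on single libraries: that of Uba7 was lost without EV replicate 1 or 2 or TAZ-CAMTA1 replicate 2 or 3 (adjusted p between 0.0560 and 0.113), that of Ube2l6 was lost without EV replicate 1 or 3 or TAZ-CAMTA1 replicate 2 or 3 (adjusted p between 0.0533 and 0.0716) and that of Herc6 was lost without EV replicate 1 or 2 or 3 or TAZ-CAMTA1 replicate 2 or 3 (adjusted p between 0.0564 and 0.198). The Herc6 call in YAP5SA was lost without EV replicate 3 or YAP5SA replicate 2 or 3 (adjusted p between 0.0547 and 0.0969). Against the full-length proteins all 3 were higher in both fusions: by 1.19 ± 0.22 (SE), 1.02 ± 0.24 (SE) and 0.63 ± 0.24 (SE) in TAZ-CAMTA1 and by 1.97 ± 0.23 (SE), 1.40 ± 0.24 (SE) and 2.14 ± 0.25 (SE) in YAP-TFE3. The Herc6 call against TAZ4SA was lost without TAZ4SA replicate 1 or 2 or TAZ-CAMTA1 replicate 3 (adjusted p between 0.138 and 0.163). Isg15 itself was lower in TAZ-CAMTA1 than in TAZ4SA (log2 fold change -1.42 ± 0.28 (SE), edgeR adjusted p = 2.30e-04) and had log2 fold change -0.02 ± 0.30 (SE), edgeR adjusted p = 0.944 in YAP-TFE3 against YAP5SA.

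Samd9l and Slfn9, also named after their values had been seen, were low in YAP5SA. Samd9l was at 21.6, 25.3 and 19.6 CPM in EV, 20.5, 12.5 and 19 in EVsub, 22.9, 21.7 and 22.9 in CAMTA1 and 18.1, 23.9 and 26.5 in TFE3. Samd9l levels were 5.06, 2.32 and 14.7 CPM in TAZ4SA, 19.5, 19.1 and 22.2 in TAZ-CAMTA1, 2.77, 1.57 and 1.27 in YAP5SA and 28.9, 29.5 and 19.3 in YAP-TFE3. It fell in TAZ4SA (log2 fold change -1.54 ± 0.37 (SE), edgeR adjusted p = 0.00107, and -2.53 without TAZ4SA replicate 3) and YAP5SA (log2 fold change -3.55 ± 0.42 (SE), edgeR adjusted p = 1.65e-07). Slfn9 fell in the same 2 groups, with log2 fold changes of -1.40 ± 0.44 (SE) (edgeR adjusted p = 0.00917) and -2.97 ± 0.49 (SE) (edgeR adjusted p = 1.25e-05), and was higher in both fusions than in the matching full-length protein, by 2.33 ± 0.44 (SE) and 3.08 ± 0.49 (SE). Slfn9 differed among the EV libraries, at 14.6, 42.9 and 17.3 CPM, and TAZ4SA replicate 3 (18.3 CPM) lay above 2 of them. The TAZ4SA call was lost without EV replicate 2 or TAZ4SA replicate 1 or 2 (adjusted p between 0.0502 and 0.140), and its value was -0.75 without EV replicate 2 and -2.39 without TAZ4SA replicate 3. Without EV replicate 2 the YAP5SA value was -2.33, and without TAZ4SA replicate 3 that of TAZ-CAMTA1 against TAZ4SA was 3.32. The other Schlafen genes listed, Slfn2, Slfn5 and Slfn8, were under 2 CPM in every library, and Slfn5 did not pass in YAP5SA (adjusted p = 0.0653). The Schlafen genes are similar to each other, and reads may be split between them.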
